A study of Danio rerio with 12 samples.

Results

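Ventricles of adult zebrafish collected 3 days post-amputation (dpa) were compared with uninjured ventricles by bulk RNA-seq, across all genes. Genes of the cell cycle are part of every count over all genes but are not described. The comparison holds 4 of the 10 libraries analysed in the series, chosen by their labels as experiment 1 and not by any measured value. They are dusp6 mutant and WT hearts at 3 dpa, and dusp6 mutant and WT uninjured hearts, with 1 library of each genotype in each state. The other 6 libraries are WT and foxm1 mutant hearts at 3 dpa from experiments 2 to 4. Those enter only where all 10 libraries or the later experiments are named. The dusp6 mutants carry the pt30a allele on both chromosomes (dusp6 encodes a phosphatase that inactivates the kinase ERK), and the WT fish are of the strain AB*. Part of the ventricle was cut off in the injured fish, the uninjured fish had no resection and no sham operation is described, and every library was made from pooled hearts, so that differences between single hearts are not seen. All fish were adults, but the age range in the labels is incomplete as written.

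The adult zebrafish heart regrows muscle after part of the ventricle is removed. As background, a clot first seals the wound, the epicardium that covers the heart and the fibroblasts beneath it lay down a provisional matrix, and leucocytes enter. Cardiomyocytes next to the wound take down part of their contractile and mitochondrial programme before they divide. A whole ventricle in bulk mixes all of these cells, and fewer cells of a type cannot be told apart from less RNA per cell in any value below.

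The 4 libraries held 54229254 to 67236702 reads in genes. Values are given as CPM (reads of a gene per 1e+06 reads of its library) after scaling between the 4 libraries by the trimmed mean of M-values (TMM). Log2 fold changes are 3 dpa over uninjured within genotype, given as value ± standard error (SE), with a p-value adjusted over all 20408 genes tested. The mitochondrial genome took 12.6% (dusp6 mutant) and 8% (WT) of the reads at 3 dpa, against 16.9% (dusp6 mutant) and 16% (WT) in uninjured hearts. The haemoglobin genes took 3.16% (dusp6 mutant) and 5.17% (WT) at 3 dpa, against 0.954% (dusp6 mutant) and 1.35% (WT) in uninjured hearts. Of 61 markers of 16 cell types or tissues, 55 were tested. The defining markers of heart muscle were present in every library, with cardiomyocyte markers summing to 23945 (dusp6 mutant) and 11949 (WT) CPM at 3 dpa, against 40874 (dusp6 mutant) and 42857 (WT) CPM in uninjured hearts. Fibroblast markers summed to 2757 (dusp6 mutant) and 7917 (WT) CPM at 3 dpa, against 488 (dusp6 mutant) and 397 (WT) CPM in uninjured hearts. Most of this sum at 3 dpa was type I collagen, with col1a1a at 1251 (dusp6 mutant) and 3488 (WT) CPM. A further type I collagen gene had 1035 (dusp6 mutant) and 3002 (WT) CPM. The log2 fold changes of the 5 fibroblast markers ran from 0.67, in a growth factor receptor gene, to 4.23. The sum thus does not measure the number of fibroblasts. Macrophage markers summed to 171 (dusp6 mutant) and 156 (WT) CPM at 3 dpa, against 52.5 (dusp6 mutant) and 45 (WT) CPM in uninjured hearts. Of this sum marco alone had 119 (dusp6 mutant) and 83.3 (WT) CPM at 3 dpa. The log2 fold changes of the macrophage markers tested ran from 0.69 to 2.23, the latter in marco. Endothelial markers summed to 679 (dusp6 mutant) and 474 (WT) CPM at 3 dpa, against 706 (dusp6 mutant) and 708 (WT) CPM in uninjured hearts. Epicardial markers summed to 340.0 (dusp6 mutant) and 676 (WT) CPM at 3 dpa, against 77.6 (dusp6 mutant) and 77.6 (WT) CPM in uninjured hearts. B cell markers stayed at or under 2.33 CPM in sum in all 4 libraries. The dusp6 transcript itself had 338 CPM in dusp6 mutant and 235 CPM in WT hearts at 3 dpa, against 201 CPM in dusp6 mutant and 93.8 CPM in WT uninjured hearts. For dusp6 the log2 fold change was 1.04 ± 0.28 (adjusted p = 0.121). It was higher in the mutants in each state, so that its level does not check the genotype labels.

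No gene passed an adjusted p of at most 0.01 together with a difference of 0.59 or more on the log2 scale in edgeR's quasi-likelihood test, a background of 0% in each direction, and the lowest adjusted p was 0.0118. With 2 libraries per state and genotype as a block, the fit has 1 residual degree of freedom. An unadjusted p under 0.05 was found for 2980 genes with higher and 1918 genes with lower expression at 3 dpa, DESeq2 called 1235 higher and 406 lower at the same limits, and edgeR's likelihood ratio test called 1381 higher and 320 lower. At an adjusted p of at most 0.05, 217 genes were called higher (1.06% of those tested) and 19 lower (0.0931%). Without the genotype block both of these counts were 0. With the spread estimated from all 10 libraries in one fit, where the fold changes rest on the same 4 libraries, 1553 of the 19552 genes tested in both fits were called higher at 0.01 (7.94%) and 558 lower (2.85%).

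The libraries of the states did not overlap in many genes. Both 3 dpa libraries lay above both uninjured libraries in 5713 genes (28%) and below both in 5643 genes (27.7%). With only 2 libraries per state, such an order also arises in many genes without any effect of state. A lack of overlap in a gene, here and below, thus does not by itself show a difference between the states. A difference of at least 2-fold within both genotypes was seen in 1812 genes upward (8.88%) and 418 genes downward (2.05%), so that large differences were mostly upward. The median log2 fold change of all genes was -0.02. Of the 217 genes called higher at 0.05, 39 were in the cell cycle list, 67 in the other 60 lists examined and 111 in none. The cell cycle list has 204 genes tested, and among all genes tested 1.06% were called higher. How many tested genes the other 60 lists hold together is not given, so 67 and 111 do not show enrichment or depletion. The lists were also chosen with earlier results of these data known. Lists are described below by the directions of their members and by their medians, and for most by how many members were 2-fold or more higher or lower in both genotypes, to be read beside 8.88% upward and 2.05% downward among all genes. Most genes named below were chosen by fold change, abundance or low p. States without overlap in such genes follow in part from that choice. Among all genes the shares without overlap were 28% upward and 27.7% downward.

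Several of the largest positive differences were in genes that were nearly silent in the uninjured heart. The lowest adjusted p of all genes was that of zgc:195023 (ENSDARG00000052948, GRCz11 chromosome 8, 48603398 to 48604351), named nppal in the gene name table and related to the natriuretic peptides, with 9.24 CPM in dusp6 mutant and 25 CPM in WT hearts at 3 dpa, against 0.0178 CPM in dusp6 mutant and 0.0331 CPM in WT uninjured hearts. Its uninjured values rest on 1 read in the dusp6 mutant and 2 reads in the WT library, so no fold is given. The endothelial lipase gene lipg (ENSDARG00000031044, GRCz11 chromosome 8, 32376936 to 32386042) had 9.74 (dusp6 mutant) and 25 (WT) CPM at 3 dpa, against 0.0356 (dusp6 mutant) and 0.0496 (WT) CPM in uninjured hearts, which in the uninjured hearts is 2 reads in the dusp6 mutant and 3 reads in the WT library. Both genes were at the level of single reads in the uninjured hearts and at 9.24 CPM or more in each injured one (adjusted p = 0.0118 and 0.0377). The protocadherin pcdh10b, a cell adhesion protein, had 4.39 CPM in dusp6 mutant and 27.8 CPM in WT hearts at 3 dpa, against 0.196 CPM in dusp6 mutant and 0.38 CPM in WT uninjured hearts. pcdh10b differed by 5.46 ± 0.37 on the log2 scale (adjusted p = 0.0419). For cyp27c1, which in zebrafish desaturates retinol, the values were 6.05 CPM in dusp6 mutant and 18.5 CPM in WT hearts at 3 dpa, against 0.231 CPM in dusp6 mutant and 0.314 CPM in WT uninjured hearts (log2 fold change 5.33 ± 0.45, adjusted p = 0.0419), and exon reads alone gave a log2 fold change of 6.23. The guanine deaminase gene gda had 5.65 (dusp6 mutant) and 36.9 (WT) CPM at 3 dpa, against 0.427 (dusp6 mutant) and 0.314 (WT) CPM in uninjured hearts. In gda this gave a log2 fold change of 5.31 ± 0.86 (adjusted p = 0.0612). In gda the WT and dusp6 mutant libraries at 3 dpa were further apart than in the genes before it.

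**Figure D1:**
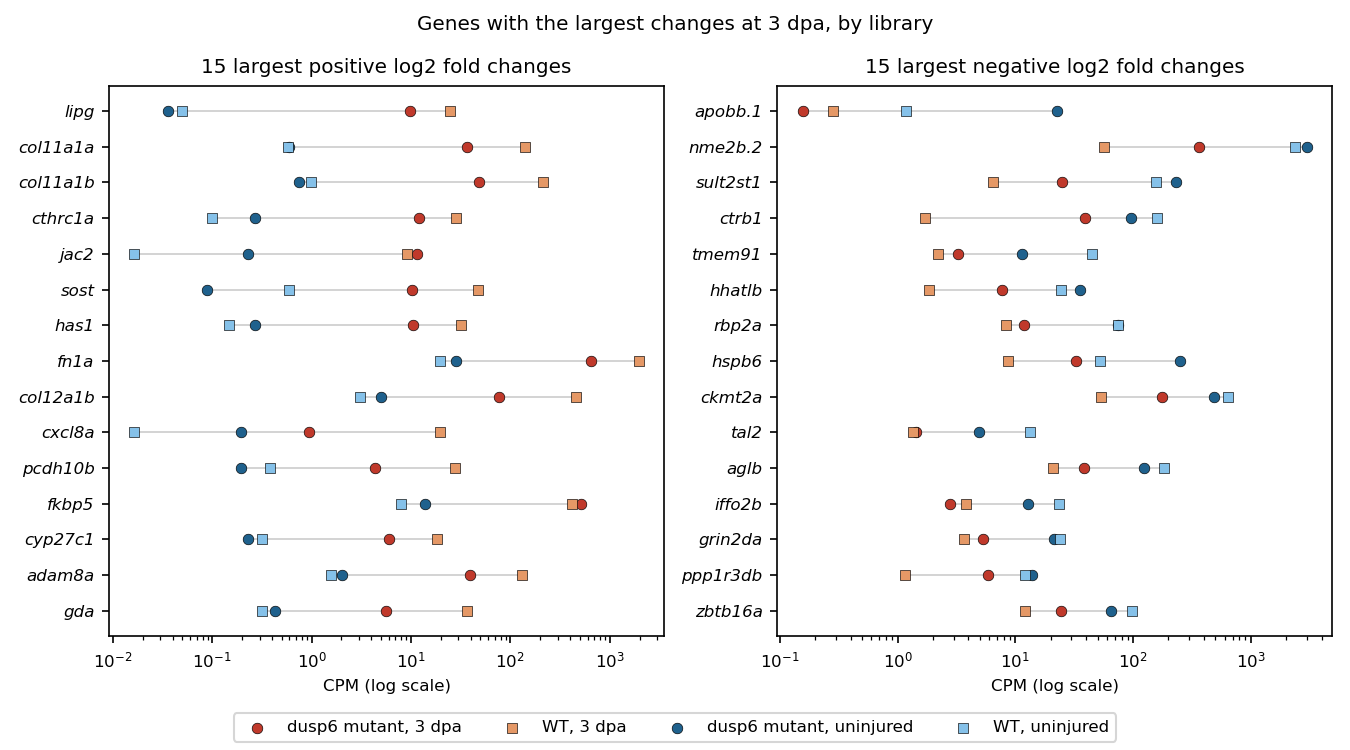
CPM on a log axis in the 4 libraries for the 15 most positive and the 15 most negative log2 fold changes among genes with a mean of at least 5 CPM that differed 2-fold or more in both genotypes, cell cycle genes and clone-based names left out. In each gene the 3 dpa points (red and orange) lie on one side of the uninjured points (blue), and in 13 of the 15 genes with higher values at 3 dpa the WT 3 dpa library is above the dusp6 mutant one.

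Among the 60 lists, fibroblast and matrix genes had the largest median. Of 24 genes tested in the fibroblast and matrix-producing cell list, 23 had higher and 1 lower fitted values at 3 dpa (median log2 fold change 2.95, with 2.10 in the dusp6 mutant and 3.74 in the WT pair), with 19 higher and 0 lower by 2-fold or more in both genotypes. Most members of this list are also in the lists of collagens, of wound matrix glycoproteins or of collagen folding and cross-linking. The results of these lists are thus not separate from each other. Fibronectin, the first protein of the provisional matrix, has a pair of genes in zebrafish. fn1a (ENSDARG00000019815, GRCz11 chromosome 9, 15362300 to 15424639) had 649.7 CPM in dusp6 mutant and 1963 CPM in WT hearts at 3 dpa, against 28.2 CPM in dusp6 mutant and 19.5 CPM in WT uninjured hearts (log2 fold change 5.59 ± 0.72, adjusted p = 0.0504). Its paralogue fn1b had 1939.5 CPM in dusp6 mutant and 3004 CPM in WT hearts at 3 dpa, against 227 CPM in dusp6 mutant and 174 CPM in WT uninjured hearts. For fn1b the log2 fold change was 3.60 ± 0.55 (adjusted p = 0.0581). Per length, in TPM (the length-scaled transcript values that the authors deposited), fn1a stood at 129.9 (dusp6 mutant) and 476 (WT) TPM at 3 dpa, against 4.67 (dusp6 mutant) and 3.27 (WT) TPM in uninjured hearts. fn1b stood at 391 (dusp6 mutant) and 721 (WT) TPM at 3 dpa, against 38.4 (dusp6 mutant) and 30.5 (WT) TPM in uninjured hearts. fn1a was thus below fn1b in every library, by the widest margin in the uninjured ones. Periostin, a matricellular protein of activated fibroblasts, is encoded by postnb, which had 221 (dusp6 mutant) and 929 (WT) CPM at 3 dpa, against 22.3 (dusp6 mutant) and 26.2 (WT) CPM in uninjured hearts. postnb differed by 4.23 ± 0.57 on the log2 scale (adjusted p = 0.0504). In all 3 genes both injured libraries were above both uninjured ones, and the WT library was the highest.

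Most collagens were higher at 3 dpa, to very different degrees. Of 43 genes tested in the collagens list, 33 had higher and 10 lower fitted values at 3 dpa (median log2 fold change 1.05, with 0.96 in the dusp6 mutant and 1.72 in the WT pair). The fibrillar type XI genes, minor components that set fibril width, had the largest fold changes of the list. Of them col11a1a (ENSDARG00000026165, GRCz11 chromosome 24, 28764021 to 28893303) had 36.8 CPM in dusp6 mutant and 139 CPM in WT hearts at 3 dpa, against 0.587 CPM in dusp6 mutant and 0.579 CPM in WT uninjured hearts. In col11a1a this gave a log2 fold change of 6.95 ± 0.60 (adjusted p = 0.0419). col11a1b had 48.1 (dusp6 mutant) and 213 (WT) CPM at 3 dpa, against 0.748 (dusp6 mutant) and 0.992 (WT) CPM in uninjured hearts (log2 fold change 6.90 ± 0.56, adjusted p = 0.0419). Both were under 1 CPM in the uninjured hearts, and from exon reads alone the log2 fold change of col11a1a was 8.84. Type I collagen, the main fibrillar collagen, was present before injury, and col1a1a had 1251 CPM in dusp6 mutant and 3488 CPM in WT hearts at 3 dpa, against 169 CPM in dusp6 mutant and 121 CPM in WT uninjured hearts. For col1a1a the log2 fold change was 3.87 ± 0.70 (adjusted p = 0.0691). col12a1a, a collagen that sits on fibril surfaces, had 230.2 (dusp6 mutant) and 849 (WT) CPM at 3 dpa, against 16.8 (dusp6 mutant) and 23.4 (WT) CPM in uninjured hearts. col12a1a differed by 4.48 ± 0.47 on the log2 scale (adjusted p = 0.0471). Smaller differences were found for col6a4a, of the beaded filament collagens, with 203 CPM in dusp6 mutant and 192 CPM in WT hearts at 3 dpa, against 80.3 CPM in dusp6 mutant and 60.4 CPM in WT uninjured hearts. In col6a4a this gave a log2 fold change of 1.50 ± 0.24 (adjusted p = 0.06). Here the genotypes were alike. Of the 43 collagens, 19 were 2-fold or more higher in both genotypes and 1 lower.

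Genes that fold and cross-link collagen were higher as well. Of 37 genes tested in the collagen folding and cross-linking list, 33 had higher and 4 lower fitted values at 3 dpa (median log2 fold change 1.33, with 0.87 in the dusp6 mutant and 2.10 in the WT pair), with 16 higher and 1 lower by 2-fold or more in both genotypes. serpinh1b, the collagen chaperone Hsp47, had 48.7 CPM in dusp6 mutant and 138 CPM in WT hearts at 3 dpa, against 4.56 CPM in dusp6 mutant and 10.3 CPM in WT uninjured hearts (log2 fold change 3.58 ± 0.23, adjusted p = 0.0419). Its paralogue serpinh1a had 82.8 (dusp6 mutant) and 211 (WT) CPM at 3 dpa, against 16.3 (dusp6 mutant) and 18.5 (WT) CPM in uninjured hearts. For serpinh1a the log2 fold change was 2.93 ± 0.36 (adjusted p = 0.0482). pcolce2b, which enhances removal of the procollagen tail, had 28.6 CPM in dusp6 mutant and 96.8 CPM in WT hearts at 3 dpa, against 4.02 CPM in dusp6 mutant and 7.57 CPM in WT uninjured hearts. pcolce2b differed by 3.26 ± 0.30 on the log2 scale (adjusted p = 0.0444). The lysyl oxidase gene loxa, whose product cross-links collagen, had 12 (dusp6 mutant) and 63.7 (WT) CPM at 3 dpa, against 0.997 (dusp6 mutant) and 1.11 (WT) CPM in uninjured hearts. In loxa this gave a log2 fold change of 4.73 ± 0.64 (adjusted p = 0.0506). All 4 genes, picked for low p in the list, separated the states without overlap. The general folding and secretion machinery of the endoplasmic reticulum differed less. In that list 92 of 107 genes tested were higher and 15 lower at 3 dpa (median log2 fold change 0.59, with 0.21 in the dusp6 mutant and 0.92 in the WT pair), and 5 were 2-fold or more higher in both genotypes. creb3l1, a transcription factor of secretory cells, had 3.57 CPM in dusp6 mutant and 11.8 CPM in WT hearts at 3 dpa, against 0.57 CPM in dusp6 mutant and 0.314 CPM in WT uninjured hearts (log2 fold change 3.90 ± 0.72, adjusted p = 0.0718).

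Hyaluronan, a large sugar polymer of wound matrix, is made at the cell surface by synthases. has1 had 10.5 CPM in dusp6 mutant and 32.1 CPM in WT hearts at 3 dpa, against 0.267 CPM in dusp6 mutant and 0.149 CPM in WT uninjured hearts. For has1 the log2 fold change was 6.47 ± 0.68 (adjusted p = 0.0471). has2 had 6.54 (dusp6 mutant) and 13.8 (WT) CPM at 3 dpa, against 1.71 (dusp6 mutant) and 1.32 (WT) CPM in uninjured hearts. has2 differed by 2.66 ± 0.46 on the log2 scale (adjusted p = 0.0653). tnfaip6, which binds hyaluronan at sites of inflammation, had 31.6 CPM in dusp6 mutant and 56.2 CPM in WT hearts at 3 dpa, against 3.29 CPM in dusp6 mutant and 3.79 CPM in WT uninjured hearts. In tnfaip6 this gave a log2 fold change of 3.58 ± 0.28 (adjusted p = 0.0419). These 3 genes were higher in both genotypes. cemip, which takes part in hyaluronan breakdown, had 57.3 (dusp6 mutant) and 26.5 (WT) CPM at 3 dpa, against 74.1 (dusp6 mutant) and 70.2 (WT) CPM in uninjured hearts (log2 fold change -0.89 ± 0.31, adjusted p = 0.182). Among metalloproteinases and their inhibitors, 30 of 43 genes tested were higher and 13 lower at 3 dpa (median log2 fold change 0.72, with 0.57 in the dusp6 mutant and 0.93 in the WT pair), with 13 higher and 1 lower by 2-fold or more in both genotypes. The membrane protease adam8a had 38.9 CPM in dusp6 mutant and 132 CPM in WT hearts at 3 dpa, against 2.03 CPM in dusp6 mutant and 1.57 CPM in WT uninjured hearts. For adam8a the log2 fold change was 5.32 ± 0.63 (adjusted p = 0.0472). The collagenase mmp13b had 1.56 (dusp6 mutant) and 8.73 (WT) CPM at 3 dpa, against 0.214 (dusp6 mutant) and 0.0496 (WT) CPM in uninjured hearts, and the gelatinase mmp2 had 198 CPM in dusp6 mutant and 381 CPM in WT hearts at 3 dpa, against 59.8 CPM in dusp6 mutant and 63.6 CPM in WT uninjured hearts. mmp2 differed by 2.15 ± 0.31 on the log2 scale (adjusted p = 0.055). cthrc1a, a secreted glycoprotein of injured tissue, had 12 (dusp6 mutant) and 28.6 (WT) CPM at 3 dpa, against 0.267 (dusp6 mutant) and 0.0992 (WT) CPM in uninjured hearts. In cthrc1a this gave a log2 fold change of 6.67 ± 0.71 (adjusted p = 0.0471). mmp13b and cthrc1a were each under 0.3 CPM in both uninjured libraries, which for mmp13b is 12 reads in the dusp6 mutant and 3 reads in the WT library, so that no fold is given for it.

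Epicardial genes split. Of 30 genes tested in the epicardium list, 20 had higher and 10 lower fitted values at 3 dpa (median log2 fold change 0.91, with 0.81 in the dusp6 mutant and 1.04 in the WT pair), with 12 higher and 1 lower by 2-fold or more in both genotypes. tcf21, a transcription factor of the epicardium and of the fibroblasts that come from it, had 54.4 CPM in dusp6 mutant and 63.9 CPM in WT hearts at 3 dpa, against 13.6 CPM in dusp6 mutant and 13.2 CPM in WT uninjured hearts (log2 fold change 2.13 ± 0.22, adjusted p = 0.0471). aldh1a2, which makes retinoic acid, had 200.5 (dusp6 mutant) and 493 (WT) CPM at 3 dpa, against 37.6 (dusp6 mutant) and 50.01 (WT) CPM in uninjured hearts. For aldh1a2 the log2 fold change was 2.86 ± 0.33 (adjusted p = 0.0472). bnc2, a zinc finger protein of mesenchyme, had 49 CPM in dusp6 mutant and 115 CPM in WT hearts at 3 dpa, against 8.67 CPM in dusp6 mutant and 8.53 CPM in WT uninjured hearts. bnc2 differed by 3.13 ± 0.38 on the log2 scale (adjusted p = 0.0472). The simple epithelial keratin gene krt4 had 609.7 (dusp6 mutant) and 1065 (WT) CPM at 3 dpa, against 88.5 (dusp6 mutant) and 118 (WT) CPM in uninjured hearts. In krt4 this gave a log2 fold change of 2.98 ± 0.33 (adjusted p = 0.0472). In tcf21 the genotypes were close to each other in each state, and in aldh1a2 and bnc2 the WT library at 3 dpa was more than 2-fold above the dusp6 mutant one. The marker upk3b, measured with the others, had 1.61 CPM in dusp6 mutant and 0.602 CPM in WT hearts at 3 dpa, against 1.55 CPM in dusp6 mutant and 1.17 CPM in WT uninjured hearts and showed no separation. The marker upk3b was named after its values were seen. The glutathione transferase gstm.3, which is in the same list, had 559.8 (dusp6 mutant) and 1301 (WT) CPM at 3 dpa, against 58.7 (dusp6 mutant) and 63.8 (WT) CPM in uninjured hearts (log2 fold change 3.80 ± 0.44, adjusted p = 0.0472).

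Macrophage genes were higher in most cases. Of 46 genes tested in the macrophage list, 40 had higher and 6 lower fitted values at 3 dpa (median log2 fold change 1.57, with 1.14 in the dusp6 mutant and 1.82 in the WT pair), and 25 were 2-fold or more higher in both genotypes, none lower. The scavenger receptor marco had 119 CPM in dusp6 mutant and 83.3 CPM in WT hearts at 3 dpa, against 27.2 CPM in dusp6 mutant and 16.4 CPM in WT uninjured hearts. For marco the log2 fold change was 2.23 ± 0.22 (adjusted p = 0.0466). The mannose receptor mrc1b had 67 (dusp6 mutant) and 89.9 (WT) CPM at 3 dpa, against 8.92 (dusp6 mutant) and 8.83 (WT) CPM in uninjured hearts. mrc1b differed by 3.13 ± 0.24 on the log2 scale (adjusted p = 0.0419). The galectin lgals9l1 had 38 CPM in dusp6 mutant and 43.3 CPM in WT hearts at 3 dpa, against 3.51 CPM in dusp6 mutant and 5.16 CPM in WT uninjured hearts. In lgals9l1 this gave a log2 fold change of 3.25 ± 0.24 (adjusted p = 0.0419). In marco and mrc1b the fold changes of the genotypes were close to each other, and for mrc1b uniquely mapped reads gave a smaller log2 fold change of 2.13. grn1, one of the granulin precursor genes, had 201 (dusp6 mutant) and 308 (WT) CPM at 3 dpa, against 22.6 (dusp6 mutant) and 9.46 (WT) CPM in uninjured hearts (log2 fold change 4.09 ± 0.55, adjusted p = 0.0504). The receptor havcr1 had 13.1 CPM in dusp6 mutant and 33.4 CPM in WT hearts at 3 dpa, against 2.1 CPM in dusp6 mutant and 3.01 CPM in WT uninjured hearts. For havcr1 the log2 fold change was 3.06 ± 0.32 (adjusted p = 0.0471). The invariant chain gene cd74a, which escorts class II histocompatibility molecules, had lower values, 133 (dusp6 mutant) and 62.5 (WT) CPM at 3 dpa, against 202 (dusp6 mutant) and 161 (WT) CPM in uninjured hearts. cd74a differed by -0.99 ± 0.28 on the log2 scale (adjusted p = 0.133). Antigen presentation genes as a list had a median near 0 (-0.12), with 17 of 35 positive and 4 higher and 0 lower by 2-fold or more in both genotypes.

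Neutrophil genes had a median log2 fold change of 1.93, with 33 of 34 positive and 21 higher and 0 lower by 2-fold or more in both genotypes, but the defining granule genes did not follow as 1 group. npsn, a protease of neutrophil granules, had 18.9 CPM in dusp6 mutant and 7.42 CPM in WT hearts at 3 dpa, against 2.14 CPM in dusp6 mutant and 1.16 CPM in WT uninjured hearts. In npsn this gave a log2 fold change of 2.92 ± 0.30 (adjusted p = 0.0471). mpx, the myeloperoxidase gene, named here as a defining marker after its values were seen, had 7 (dusp6 mutant) and 7.13 (WT) CPM at 3 dpa, against 8.08 (dusp6 mutant) and 0.975 (WT) CPM in uninjured hearts (log2 fold change 1.27 ± 0.82, adjusted p = 0.408). Its uninjured dusp6 mutant library was the highest of the 4. lyz, the lysozyme gene, was high in 1 library only, with 20.9 CPM in dusp6 mutant and 0.767 CPM in WT hearts at 3 dpa, against 1.37 CPM in dusp6 mutant and 1.26 CPM in WT uninjured hearts. For lyz the log2 fold change was 1.73 ± 1.30 (adjusted p = 0.475). The list includes genes of other cells. s100a10b, a calcium-binding protein of many tissues, had 493 (dusp6 mutant) and 883 (WT) CPM at 3 dpa, against 152 (dusp6 mutant) and 168 (WT) CPM in uninjured hearts. s100a10b differed by 2.04 ± 0.34 on the log2 scale (adjusted p = 0.0619). cyba, the membrane subunit of the phagocyte oxidase, had 22.4 CPM in dusp6 mutant and 28.8 CPM in WT hearts at 3 dpa, against 7.07 CPM in dusp6 mutant and 7.52 CPM in WT uninjured hearts. In cyba this gave a log2 fold change of 1.80 ± 0.23 (adjusted p = 0.0504). In these 2 genes both injured libraries were above both uninjured ones. The transcription factor cebpb had 28.5 (dusp6 mutant) and 65.5 (WT) CPM at 3 dpa, against 8.28 (dusp6 mutant) and 5.92 (WT) CPM in uninjured hearts (log2 fold change 2.63 ± 0.47, adjusted p = 0.0674).

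Among chemokines and cytokines, 45 of 61 genes tested were higher and 16 lower at 3 dpa (median log2 fold change 0.63, with 0.62 in the dusp6 mutant and 0.74 in the WT pair), with 19 higher and 2 lower by 2-fold or more in both genotypes. The macrophage growth factor gene csf1a had 15.7 CPM in dusp6 mutant and 20.5 CPM in WT hearts at 3 dpa, against 2.08 CPM in dusp6 mutant and 0.992 CPM in WT uninjured hearts. For csf1a the log2 fold change was 3.62 ± 0.45 (adjusted p = 0.0482). cxcl12a, a chemokine that guides migrating cells, had 77.2 (dusp6 mutant) and 124 (WT) CPM at 3 dpa, against 20.8 (dusp6 mutant) and 12.8 (WT) CPM in uninjured hearts. cxcl12a differed by 2.58 ± 0.40 on the log2 scale (adjusted p = 0.0584). The neutrophil chemokine gene cxcl8a was high in the WT library alone, with 0.954 CPM in dusp6 mutant and 19.8 CPM in WT hearts at 3 dpa, against 0.196 CPM in dusp6 mutant and 0.0165 CPM in WT uninjured hearts. The uninjured values are 11 reads in the dusp6 mutant and 1 read in the WT library, so that no fold is given. 1 chemokine was called lower at 0.05, and ccl27a had 0.485 (dusp6 mutant) and 0.15 (WT) CPM at 3 dpa, against 7.46 (dusp6 mutant) and 6.15 (WT) CPM in uninjured hearts. In ccl27a this gave a log2 fold change of -4.55 ± 0.50 (adjusted p = 0.0472). ccr9a, a chemokine receptor of lymphocytes, had 9.88 CPM in dusp6 mutant and 11.9 CPM in WT hearts at 3 dpa, against 1.21 CPM in dusp6 mutant and 0.81 CPM in WT uninjured hearts (log2 fold change 3.44 ± 0.37, adjusted p = 0.0471). The complement list had 21 of 27 genes higher (median log2 fold change 0.79, with 0.87 in the dusp6 mutant and 1.06 in the WT pair), with 9 higher and 1 lower by 2-fold or more in both genotypes. c1qc, which encodes a chain of the first component, had 39.9 (dusp6 mutant) and 39.8 (WT) CPM at 3 dpa, against 9.38 (dusp6 mutant) and 10.2 (WT) CPM in uninjured hearts. For c1qc the log2 fold change was 2.02 ± 0.21 (adjusted p = 0.0471). Interferon-stimulated genes had a median of 0.16, with 0.40 in the dusp6 mutant and -0.03 in the WT pair. Of these 26 of 44 were positive, with 3 higher and 0 lower by 2-fold or more in both genotypes. Both injured libraries lay above both uninjured ones in 17 of the 44 and below both in 5, against 28% and 27.7% of all genes. In this list mxa, an antiviral GTPase, had 14.1 CPM in dusp6 mutant and 9.64 CPM in WT hearts at 3 dpa, against 4.47 CPM in dusp6 mutant and 3.82 CPM in WT uninjured hearts. mxa differed by 1.50 ± 0.27 on the log2 scale (adjusted p = 0.068). stat1a, which carries the interferon signal, had 189.7 (dusp6 mutant) and 128 (WT) CPM at 3 dpa, against 176 (dusp6 mutant) and 191 (WT) CPM in uninjured hearts. In stat1a this gave a log2 fold change of -0.24 ± 0.28 (adjusted p = 0.649).

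Red cell genes gave the largest gains of CPM. The alpha globin gene hbaa1 had 10365 CPM in dusp6 mutant and 18159 CPM in WT hearts at 3 dpa, against 2830.1 CPM in dusp6 mutant and 3862 CPM in WT uninjured hearts (log2 fold change 2.05 ± 1.09, adjusted p = 0.326). The globin gene hbba1_2 had 13128 (dusp6 mutant) and 18960.0 (WT) CPM at 3 dpa, against 5801 (dusp6 mutant) and 7910.2 (WT) CPM in uninjured hearts. For hbba1_2 the log2 fold change was 1.22 ± 1.22 (adjusted p = 0.592). Globin genes are near-identical copies, and how reads were split among them is uncertain. slc4a1a, the anion exchanger of the red cell membrane, had 641 CPM in dusp6 mutant and 1167 CPM in WT hearts at 3 dpa, against 168 CPM in dusp6 mutant and 205 CPM in WT uninjured hearts. slc4a1a differed by 2.22 ± 0.35 on the log2 scale (adjusted p = 0.0601). hmbsb, an enzyme of haem synthesis, had 29.4 (dusp6 mutant) and 79.6 (WT) CPM at 3 dpa, against 5.5 (dusp6 mutant) and 7.42 (WT) CPM in uninjured hearts. In hmbsb this gave a log2 fold change of 2.92 ± 0.33 (adjusted p = 0.0472). Every one of these genes was higher in both injured libraries, with WT above the dusp6 mutant. Of 24 erythrocyte genes tested, 21 were positive and 10 were 2-fold or more higher in both genotypes. In the thrombocyte and coagulation list 16 of 30 genes were positive (median 0.22), with 5 higher and 0 lower by 2-fold or more in both genotypes. The 3 thrombocyte markers all had negative fitted log2 fold changes, but not all were lower in both genotypes. In the WT pair a marker had 22.6 CPM at 3 dpa against 15.6 CPM in uninjured hearts. In the dusp6 mutant pair another had 47.9 against 43.6 CPM, and the remaining marker was lower in both genotypes. The 3 markers summed to 54.6 (dusp6 mutant) and 57.5 (WT) CPM at 3 dpa, against 58.5 (dusp6 mutant) and 81.8 (WT) CPM in uninjured hearts. Coagulation genes with higher values are given next. plat, a plasminogen activator, had 45.2 (dusp6 mutant) and 18.9 (WT) CPM at 3 dpa, against 14.7 (dusp6 mutant) and 6.99 (WT) CPM in uninjured hearts (log2 fold change 1.53 ± 0.22, adjusted p = 0.0529). f13a1b, a factor XIII subunit that cross-links fibrin, had 105 CPM in dusp6 mutant and 102 CPM in WT hearts at 3 dpa, against 45.2 CPM in dusp6 mutant and 22.1 CPM in WT uninjured hearts. For f13a1b the log2 fold change was 1.71 ± 0.31 (adjusted p = 0.0695).

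Genes of the actin cytoskeleton were higher in non-muscle forms. Of 84 genes tested in the actin cytoskeleton and motility list, 68 had higher and 16 lower fitted values at 3 dpa (median log2 fold change 0.91, with 0.70 in the dusp6 mutant and 1.11 in the WT pair), and 27 were 2-fold or more higher in both genotypes. The thymosin gene tmsb2, which binds free actin, had 55.8 CPM in dusp6 mutant and 79.8 CPM in WT hearts at 3 dpa, against 6.05 CPM in dusp6 mutant and 5.14 CPM in WT uninjured hearts. tmsb2 differed by 3.58 ± 0.29 on the log2 scale (adjusted p = 0.0419). The Arp2/3 subunit arpc1b, needed for branched actin, had 128 (dusp6 mutant) and 226 (WT) CPM at 3 dpa, against 26.8 (dusp6 mutant) and 26.7 (WT) CPM in uninjured hearts. In arpc1b this gave a log2 fold change of 2.67 ± 0.30 (adjusted p = 0.0472). Profilin, which feeds actin into filaments, is encoded by pfn1, with 279 CPM in dusp6 mutant and 261 CPM in WT hearts at 3 dpa, against 78.3 CPM in dusp6 mutant and 74.9 CPM in WT uninjured hearts (log2 fold change 1.82 ± 0.24, adjusted p = 0.0504). actb1 had 978 (dusp6 mutant) and 1969 (WT) CPM at 3 dpa, against 289 (dusp6 mutant) and 338 (WT) CPM in uninjured hearts. For actb1 the log2 fold change was 2.15 ± 0.43 (adjusted p = 0.0816). actb2 had 3479 CPM in dusp6 mutant and 3605 CPM in WT hearts at 3 dpa, against 2591 CPM in dusp6 mutant and 2451 CPM in WT uninjured hearts. actb2 differed by 0.49 ± 0.62 on the log2 scale (adjusted p = 0.675). The 2 cytoplasmic actin genes are near-identical in coding sequence, so their split is uncertain. The tropomyosin tpm4a, also a member, is a heart muscle form in zebrafish and had lower values, 5828 (dusp6 mutant) and 2633 (WT) CPM at 3 dpa, against 9037 (dusp6 mutant) and 8553 (WT) CPM in uninjured hearts. In tpm4a this gave a log2 fold change of -1.17 ± 0.96 (adjusted p = 0.51).

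Annexins, S100 proteins and intermediate filaments were mostly higher too. Of 37 genes tested in the annexins, S100 and galectins list, 30 had higher and 7 lower fitted values at 3 dpa (median log2 fold change 0.86, with 0.86 in the dusp6 mutant and 1.17 in the WT pair), with 13 higher and 0 lower by 2-fold or more in both genotypes. anxa5b, which binds exposed phosphatidylserine, had 99.5 CPM in dusp6 mutant and 200.4 CPM in WT hearts at 3 dpa, against 13 CPM in dusp6 mutant and 13.4 CPM in WT uninjured hearts (log2 fold change 3.42 ± 0.33, adjusted p = 0.0466). anxa1a had 233 (dusp6 mutant) and 572 (WT) CPM at 3 dpa, against 39.6 (dusp6 mutant) and 106 (WT) CPM in uninjured hearts. For anxa1a the log2 fold change was 2.50 ± 0.26 (adjusted p = 0.0471). anxa2a was among the 12 largest gains of CPM, with 1029 CPM in dusp6 mutant and 2275 CPM in WT hearts at 3 dpa, against 209 CPM in dusp6 mutant and 411 CPM in WT uninjured hearts. anxa2a differed by 2.38 ± 0.40 on the log2 scale (adjusted p = 0.0634). In keratins, 19 of 23 genes were positive, with 7 higher and 0 lower by 2-fold or more in both genotypes. zgc:77517, named krt18b in the gene name table, had 272 (dusp6 mutant) and 494 (WT) CPM at 3 dpa, against 49.6 (dusp6 mutant) and 41.5 (WT) CPM in uninjured hearts. In zgc:77517 this gave a log2 fold change of 3.01 ± 0.38 (adjusted p = 0.0492). The mesenchymal filament gene vim had 66.8 CPM in dusp6 mutant and 62.6 CPM in WT hearts at 3 dpa, against 28.8 CPM in dusp6 mutant and 26.2 CPM in WT uninjured hearts (log2 fold change 1.24 ± 0.20, adjusted p = 0.0614). Its genotypes were alike in each state. desma, the desmin of muscle, had 875 (dusp6 mutant) and 468 (WT) CPM at 3 dpa, against 1367 (dusp6 mutant) and 1307 (WT) CPM in uninjured hearts. For desma the log2 fold change was -1.06 ± 0.44 (adjusted p = 0.228). Tubulins also split. tuba1a, a form of growing cells, had 104 CPM in dusp6 mutant and 256 CPM in WT hearts at 3 dpa, against 8.67 CPM in dusp6 mutant and 10.9 CPM in WT uninjured hearts. tuba1a differed by 4.07 ± 0.34 on the log2 scale (adjusted p = 0.0419). stmn1b, a tubulin-binding stathmin, had 11.2 (dusp6 mutant) and 23.7 (WT) CPM at 3 dpa, against 1.19 (dusp6 mutant) and 1.8 (WT) CPM in uninjured hearts. In stmn1b this gave a log2 fold change of 3.48 ± 0.29 (adjusted p = 0.0419). tuba8l2 was lower, with 171 CPM in dusp6 mutant and 134 CPM in WT hearts at 3 dpa, against 280.2 CPM in dusp6 mutant and 387 CPM in WT uninjured hearts (log2 fold change -1.12 ± 0.31, adjusted p = 0.129).

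**Figure D2:**
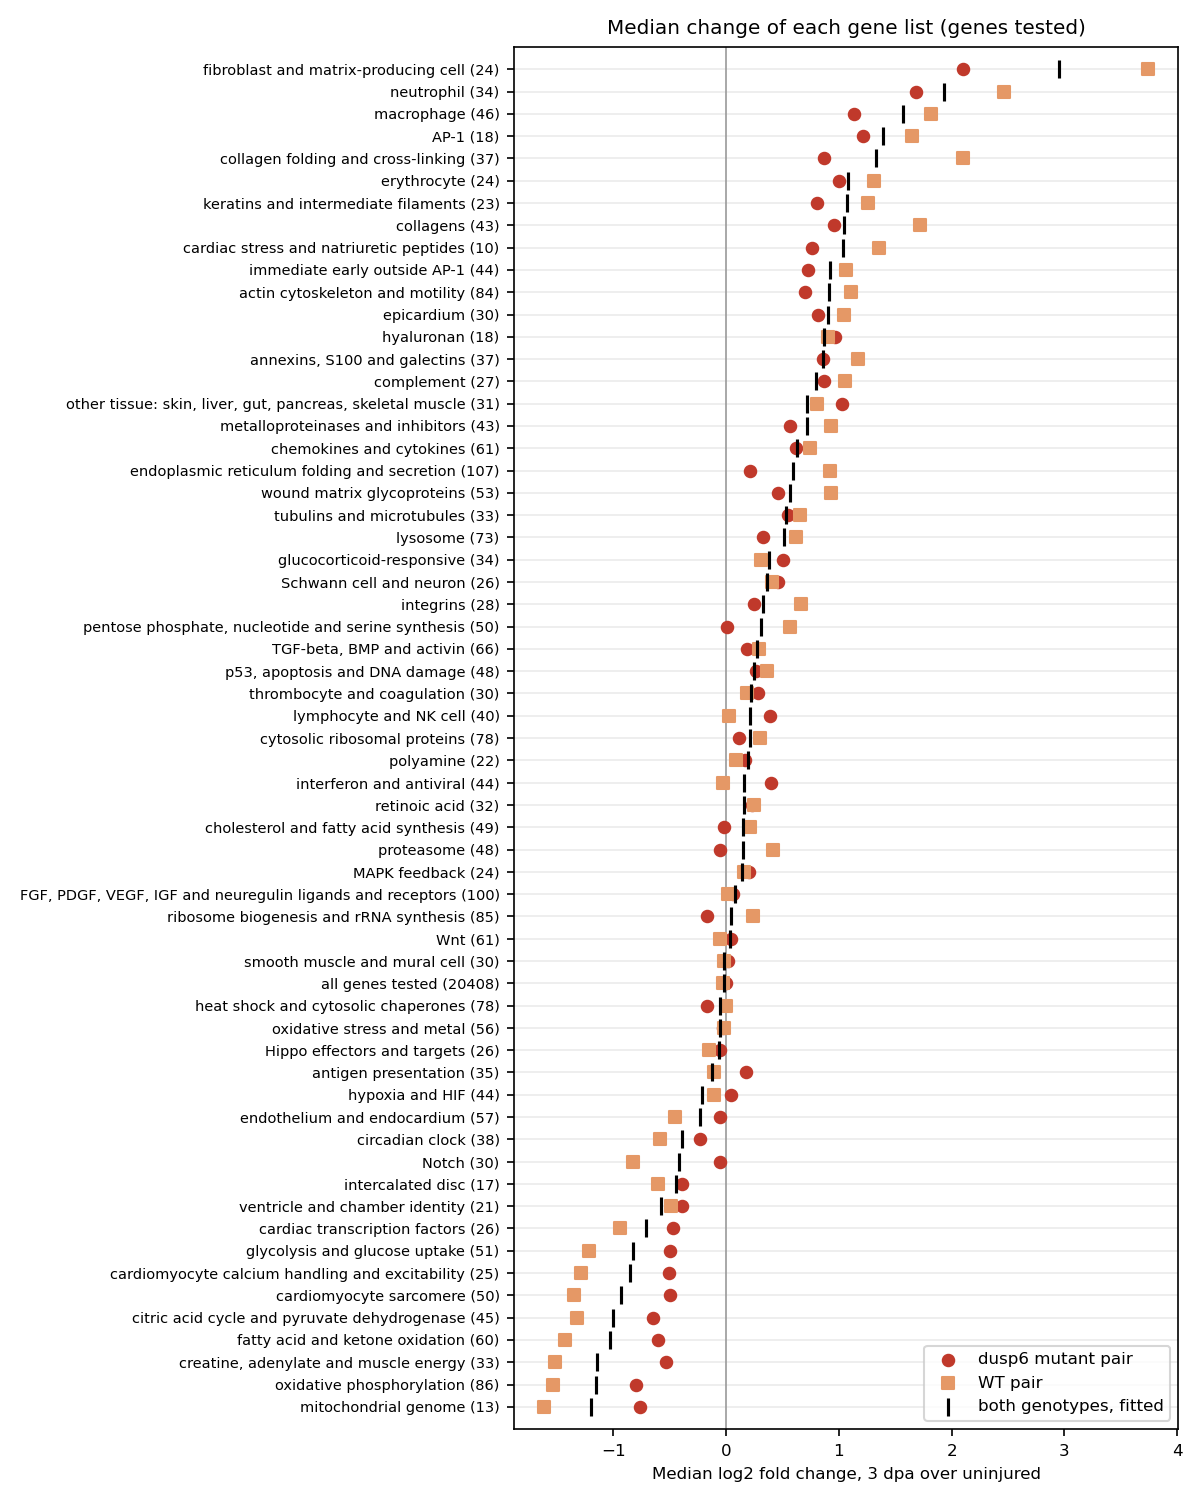
Median log2 fold change of each gene list, with the number of genes tested in brackets, in the dusp6 mutant pair of libraries (circles), the WT pair (squares) and the fit over both (bars). Lists run from the fibroblast list at 2.95 down to the mitochondrial genome at -1.20, all genes lie at -0.02, and the WT square is the more extreme in 46 of 60 lists.

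Heart muscle genes were lower as a group, with named exceptions. Of 50 genes tested in the cardiomyocyte sarcomere list, 11 had higher and 39 lower fitted values at 3 dpa (median log2 fold change -0.93, with -0.49 in the dusp6 mutant and -1.35 in the WT pair), with 4 higher and 5 lower by 2-fold or more in both genotypes. The values of both injured libraries lay below both uninjured ones in 32 genes, against 27.7% of all genes tested. myh7l, a myosin heavy chain gene, had 24036 CPM in dusp6 mutant and 7680.1 CPM in WT hearts at 3 dpa, against 39239.9 CPM in dusp6 mutant and 36036 CPM in WT uninjured hearts. For myh7l the log2 fold change was -1.47 ± 2.02 (adjusted p = 0.703). actc1a_2, a cardiac actin, had 6398 (dusp6 mutant) and 3869.6 (WT) CPM at 3 dpa, against 17556 (dusp6 mutant) and 16778 (WT) CPM in uninjured hearts. actc1a_2 differed by -1.79 ± 1.24 on the log2 scale (adjusted p = 0.437). myoz2a, a protein of the Z-disc, had 1.09 CPM in dusp6 mutant and 1.7 CPM in WT hearts at 3 dpa, against 5.36 CPM in dusp6 mutant and 9.08 CPM in WT uninjured hearts. In myoz2a this gave a log2 fold change of -2.36 ± 0.32 (adjusted p = 0.0504). The SE was large for the most abundant muscle genes, and none of the 39 lower members passed the test over 4 libraries at 0.05. With the spread from all 10 libraries, 5 members were called lower at 0.01, against 2.85% of all genes in both fits. Among the 11 positive members was myh6, the atrial myosin gene of zebrafish, with 551 (dusp6 mutant) and 1368 (WT) CPM at 3 dpa, against 51.2 (dusp6 mutant) and 93.2 (WT) CPM in uninjured hearts (log2 fold change 3.65 ± 0.36, adjusted p = 0.0467). Per length, myh6 stood at 167 (dusp6 mutant) and 495 (WT) TPM at 3 dpa, against 12.9 (dusp6 mutant) and 24.3 (WT) TPM in uninjured hearts. myh7l stood at 6705 (dusp6 mutant) and 2550.2 (WT) TPM at 3 dpa, against 9143 (dusp6 mutant) and 8697 (WT) TPM in uninjured hearts. myh7l was thus the more abundant in every library.

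Calcium handling and conduction followed the sarcomere. Of 25 genes tested in the cardiomyocyte calcium handling and excitability list, 4 had higher and 21 lower fitted values at 3 dpa (median log2 fold change -0.86, with -0.50 in the dusp6 mutant and -1.29 in the WT pair), with 1 higher and 3 lower by 2-fold or more in both genotypes. atp2a2a, the pump that returns calcium to the sarcoplasmic reticulum, had 3179.9 CPM in dusp6 mutant and 1318 CPM in WT hearts at 3 dpa, against 5963 CPM in dusp6 mutant and 5136 CPM in WT uninjured hearts. For atp2a2a the log2 fold change was -1.43 ± 0.76 (adjusted p = 0.325). The sodium channel gene scn5lab had 60.3 (dusp6 mutant) and 35.4 (WT) CPM at 3 dpa, against 104 (dusp6 mutant) and 99.4 (WT) CPM in uninjured hearts. scn5lab differed by -1.14 ± 0.26 on the log2 scale (adjusted p = 0.102). The inward rectifier potassium channel kcnj2a had 1.44 CPM in dusp6 mutant and 1.29 CPM in WT hearts at 3 dpa, against 5.82 CPM in dusp6 mutant and 4 CPM in WT uninjured hearts. In kcnj2a this gave a log2 fold change of -1.82 ± 0.35 (adjusted p = 0.0741). The paralogues of calcium/calmodulin kinase II delta differed in opposite directions. camk2d1 had 12.8 (dusp6 mutant) and 11.2 (WT) CPM at 3 dpa, against 3.01 (dusp6 mutant) and 1.62 (WT) CPM in uninjured hearts (log2 fold change 2.43 ± 0.32, adjusted p = 0.0504). camk2d2 had 46.5 CPM in dusp6 mutant and 26.2 CPM in WT hearts at 3 dpa, against 118 CPM in dusp6 mutant and 119 CPM in WT uninjured hearts. For camk2d2 the log2 fold change was -1.76 ± 0.29 (adjusted p = 0.0614). The states did not overlap in either gene. Both injured libraries lay below both uninjured ones in 20 of the 25 genes, against 27.7% of all genes tested.

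Transcription factors of the heart were mostly lower. Of 26 genes tested in the cardiac transcription factors list, 6 had higher and 20 lower fitted values at 3 dpa (median log2 fold change -0.71, with -0.47 in the dusp6 mutant and -0.94 in the WT pair), with 2 higher and 3 lower by 2-fold or more in both genotypes. nkx2.5, which keeps ventricular identity, had 119 CPM in dusp6 mutant and 64.6 CPM in WT hearts at 3 dpa, against 185 CPM in dusp6 mutant and 192 CPM in WT uninjured hearts. nkx2.5 differed by -1.10 ± 0.31 on the log2 scale (adjusted p = 0.13). mef2ca, which drives muscle genes, had 115 (dusp6 mutant) and 51.1 (WT) CPM at 3 dpa, against 175 (dusp6 mutant) and 194 (WT) CPM in uninjured hearts. In mef2ca this gave a log2 fold change of -1.27 ± 0.38 (adjusted p = 0.143). irx1a, a ventricular factor, had 38.3 CPM in dusp6 mutant and 13.8 CPM in WT hearts at 3 dpa, against 87.9 CPM in dusp6 mutant and 93 CPM in WT uninjured hearts (log2 fold change -1.97 ± 0.43, adjusted p = 0.0928). In each the order from low to high was WT at 3 dpa, dusp6 mutant at 3 dpa and then the uninjured libraries. prrx1a, a factor of mesenchyme in the list, was higher, with 6.99 (dusp6 mutant) and 27.3 (WT) CPM at 3 dpa, against 1.37 (dusp6 mutant) and 1.44 (WT) CPM in uninjured hearts. For prrx1a the log2 fold change was 3.31 ± 0.54 (adjusted p = 0.0614). Among peptides of the stressed heart, nppb had 121 CPM in dusp6 mutant and 269.6 CPM in WT hearts at 3 dpa, against 31.9 CPM in dusp6 mutant and 49.1 CPM in WT uninjured hearts. nppb differed by 2.19 ± 0.26 on the log2 scale (adjusted p = 0.0472). nppa had 2402 (dusp6 mutant) and 3495 (WT) CPM at 3 dpa, against 1699 (dusp6 mutant) and 1751 (WT) CPM in uninjured hearts. In nppa this gave a log2 fold change of 0.75 ± 0.57 (adjusted p = 0.477). The receptor npr2 had 19.5 CPM in dusp6 mutant and 27.4 CPM in WT hearts at 3 dpa, against 9.63 CPM in dusp6 mutant and 8.91 CPM in WT uninjured hearts (log2 fold change 1.32 ± 0.26, adjusted p = 0.0785). nr2f1a, an atrial transcription factor, had 19.6 (dusp6 mutant) and 28.5 (WT) CPM at 3 dpa, against 6.32 (dusp6 mutant) and 6.41 (WT) CPM in uninjured hearts. For nr2f1a the log2 fold change was 1.89 ± 0.26 (adjusted p = 0.0506). In these genes the injured libraries were above the uninjured ones, nppa by the smallest margin.

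**Figure D3:**
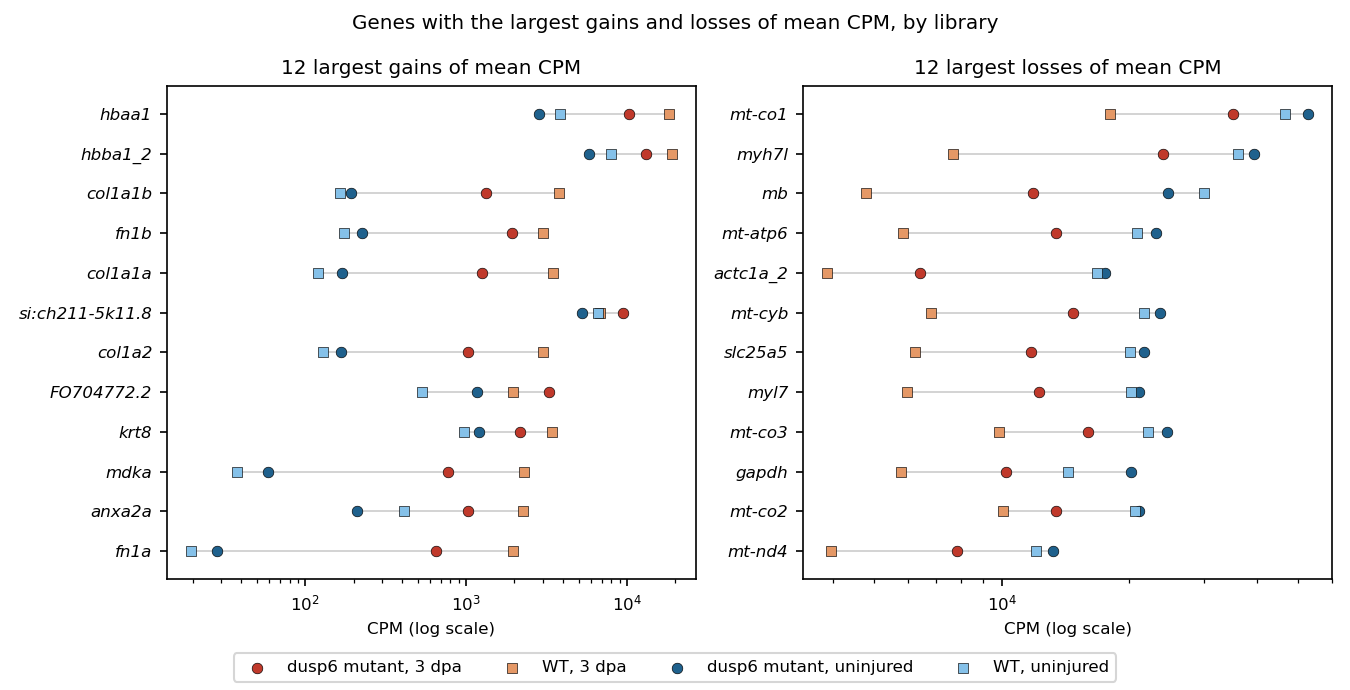
CPM on a log axis in the 4 libraries for the 12 genes with the largest gains and the 12 with the largest losses of mean CPM at 3 dpa. The gains are globin, collagen, fibronectin and keratin genes with mdka, anxa2a and genes with clone-based names. The losses are mitochondrial, contractile and energy genes, and for every loss the WT 3 dpa library is the lowest point.

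Mitochondrial genes were lower in the widest manner. Of 86 genes of oxidative phosphorylation, 84 had a negative log2 fold change and both injured libraries were below both uninjured ones in 81. When the spread came from all 10 libraries, 71 were called lower at 0.01. Among all genes these shares were 51.2%, 27.7% and, for genes in both fits, 2.85%. Only 8 of the 86 genes were 2-fold or more lower in both genotypes. The median log2 fold change was -1.15, with -0.80 in the dusp6 mutant and -1.54 in the WT pair. The difference was thus broad, and larger in the WT pair. ndufs4, of complex I, had 57.6 CPM in dusp6 mutant and 42.8 CPM in WT hearts at 3 dpa, against 110.2 CPM in dusp6 mutant and 116 CPM in WT uninjured hearts. ndufs4 differed by -1.18 ± 0.24 on the log2 scale (adjusted p = 0.0816). cox5b2, of complex IV, had 196 (dusp6 mutant) and 102 (WT) CPM at 3 dpa, against 477 (dusp6 mutant) and 492 (WT) CPM in uninjured hearts. In cox5b2 this gave a log2 fold change of -1.77 ± 0.36 (adjusted p = 0.083). All 13 genes of the mitochondrial genome had lower values in both injured libraries. Their median was -1.20, with -0.76 in the dusp6 mutant and -1.61 in the WT pair. By 2-fold or more in both genotypes, 0 were higher and 0 lower. mt-atp8 had 516 CPM in dusp6 mutant and 259 CPM in WT hearts at 3 dpa, against 1032 CPM in dusp6 mutant and 937 CPM in WT uninjured hearts (log2 fold change -1.43 ± 0.40, adjusted p = 0.128). The 2 positive members were cox6a1, in mammals the complex IV subunit form of non-muscle tissue, with 45.1 (dusp6 mutant) and 70.8 (WT) CPM at 3 dpa, against 24.5 (dusp6 mutant) and 24.7 (WT) CPM in uninjured hearts. For cox6a1 the log2 fold change was 1.20 ± 0.25 (adjusted p = 0.0874). The other was sdhda, named after its values were seen, with 3.49 CPM in dusp6 mutant and 4.32 CPM in WT hearts at 3 dpa, against 2.72 CPM in dusp6 mutant and 2.81 CPM in WT uninjured hearts. The muscle form cox6a2, also chosen after its values were seen, had 529.6 (dusp6 mutant) and 271 (WT) CPM at 3 dpa, against 1045 (dusp6 mutant) and 1177 (WT) CPM in uninjured hearts. cox6a2 differed by -1.55 ± 0.45 on the log2 scale (adjusted p = 0.135). Per length, cox6a2 stood at 1805 (dusp6 mutant) and 1095 (WT) TPM at 3 dpa, against 2967 (dusp6 mutant) and 3466 (WT) TPM in uninjured hearts. cox6a1 stood at 118 (dusp6 mutant) and 238 (WT) TPM at 3 dpa, against 53.7 (dusp6 mutant) and 56.4 (WT) TPM in uninjured hearts.

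Fuel enzymes were lower on several routes. In fatty acid oxidation 53 of 60 genes were negative (median -1.03), with 0 higher and 9 lower by 2-fold or more in both genotypes. cpt2, which rebuilds acyl-CoA inside the mitochondrion, had 48.9 CPM in dusp6 mutant and 32.6 CPM in WT hearts at 3 dpa, against 112 CPM in dusp6 mutant and 109 CPM in WT uninjured hearts. In cpt2 this gave a log2 fold change of -1.47 ± 0.24 (adjusted p = 0.0617). acsl1b, which activates fatty acids, had 1187 (dusp6 mutant) and 268 (WT) CPM at 3 dpa, against 2489 (dusp6 mutant) and 2066 (WT) CPM in uninjured hearts (log2 fold change -2.01 ± 0.67, adjusted p = 0.167). In the citric acid cycle 40 of 45 were negative (median -1.00), with 0 higher and 1 lower by that margin. Glycolysis held both directions, with 41 of 51 negative and 2 higher and 5 lower by that margin. pkmb, a pyruvate kinase, had 117 (dusp6 mutant) and 58.9 (WT) CPM at 3 dpa, against 259.7 (dusp6 mutant) and 253 (WT) CPM in uninjured hearts. For pkmb the log2 fold change was -1.62 ± 0.32 (adjusted p = 0.0817). aldoaa, an aldolase, had 2597 CPM in dusp6 mutant and 1352 CPM in WT hearts at 3 dpa, against 3693 CPM in dusp6 mutant and 4383 CPM in WT uninjured hearts. aldoaa differed by -1.10 ± 0.69 on the log2 scale (adjusted p = 0.397). hk2, the hexokinase that commits glucose to the cell, was higher, with 4.53 (dusp6 mutant) and 23.3 (WT) CPM at 3 dpa, against 1.33 (dusp6 mutant) and 2.48 (WT) CPM in uninjured hearts. In hk2 this gave a log2 fold change of 2.52 ± 0.45 (adjusted p = 0.0677). eno1b, an enolase, was also higher, with 5.72 CPM in dusp6 mutant and 7.3 CPM in WT hearts at 3 dpa, against 2.08 CPM in dusp6 mutant and 2.12 CPM in WT uninjured hearts (log2 fold change 1.62 ± 0.31, adjusted p = 0.0772). No member of the 3 lists passed the test over 4 libraries at 0.05.

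Energy buffering genes split between forms of the same enzyme. Of 33 genes tested in the creatine, adenylate and muscle energy list, 6 had higher and 27 lower fitted values at 3 dpa (median log2 fold change -1.15, with -0.54 in the dusp6 mutant and -1.52 in the WT pair), with 2 higher and 5 lower by 2-fold or more in both genotypes. Myoglobin, which stores oxygen in muscle, is encoded by mb, with 11818 CPM in dusp6 mutant and 4780.3 CPM in WT hearts at 3 dpa, against 24702 CPM in dusp6 mutant and 30019.7 CPM in WT uninjured hearts. For mb the log2 fold change was -1.86 ± 1.66 (adjusted p = 0.548). ckmt2a, a muscle mitochondrial creatine kinase, had 176 (dusp6 mutant) and 53 (WT) CPM at 3 dpa, against 492 (dusp6 mutant) and 644 (WT) CPM in uninjured hearts. ckmt2a differed by -2.54 ± 0.60 on the log2 scale (adjusted p = 0.106). ckba, the brain form of creatine kinase, was higher, with 151 CPM in dusp6 mutant and 339 CPM in WT hearts at 3 dpa, against 23.7 CPM in dusp6 mutant and 15 CPM in WT uninjured hearts. In ckba this gave a log2 fold change of 3.58 ± 0.53 (adjusted p = 0.0552). The cytoglobin gene cygb1 had 58.4 (dusp6 mutant) and 102 (WT) CPM at 3 dpa, against 15.3 (dusp6 mutant) and 19.4 (WT) CPM in uninjured hearts (log2 fold change 2.17 ± 0.24, adjusted p = 0.0472). Of nucleotide enzymes, nme2b.2, a nucleoside diphosphate kinase, had the most negative log2 fold change of the genes shown in the plot of the largest fold changes after apobb.1, with 365 CPM in dusp6 mutant and 56.6 CPM in WT hearts at 3 dpa, against 2992 CPM in dusp6 mutant and 2387 CPM in WT uninjured hearts. For nme2b.2 the log2 fold change was -4.22 ± 0.82 (adjusted p = 0.0778). Its neighbour in name nme2b.1 had 596 (dusp6 mutant) and 531 (WT) CPM at 3 dpa, against 432 (dusp6 mutant) and 279 (WT) CPM in uninjured hearts. nme2b.1 differed by 0.70 ± 0.31 on the log2 scale (adjusted p = 0.26). These are close paralogues and the split of their reads is uncertain. psat1, of serine synthesis, had 16 CPM in dusp6 mutant and 34 CPM in WT hearts at 3 dpa, against 4.82 CPM in dusp6 mutant and 4.45 CPM in WT uninjured hearts. In psat1 this gave a log2 fold change of 2.33 ± 0.37 (adjusted p = 0.0604). mthfd1l, of mitochondrial folate metabolism, had 1.89 (dusp6 mutant) and 6.33 (WT) CPM at 3 dpa, against 0.267 (dusp6 mutant) and 0.463 (WT) CPM in uninjured hearts (log2 fold change 3.34 ± 0.46, adjusted p = 0.0517). odc1, the first enzyme of polyamine synthesis, had 19.5 CPM in dusp6 mutant and 57.2 CPM in WT hearts at 3 dpa, against 3.26 CPM in dusp6 mutant and 2.45 CPM in WT uninjured hearts. For odc1 the log2 fold change was 3.56 ± 0.55 (adjusted p = 0.0584).

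Protein synthesis and turnover differed little in the medians fitted over both genotypes. Of 78 cytosolic ribosomal protein genes, 75 were positive, but the median log2 fold change was 0.21 and 1 gene was 2-fold or more higher in both genotypes. That gene was rpl22l1, a paralogue of rpl22, with 168 CPM in dusp6 mutant and 240.2 CPM in WT hearts at 3 dpa, against 75.8 CPM in dusp6 mutant and 57.4 CPM in WT uninjured hearts. rpl22l1 differed by 1.61 ± 0.31 on the log2 scale (adjusted p = 0.0767). The abundant rps2 had 3061 (dusp6 mutant) and 2639.5 (WT) CPM at 3 dpa, against 2764 (dusp6 mutant) and 2202 (WT) CPM in uninjured hearts. In rps2 this gave a log2 fold change of 0.20 ± 0.58 (adjusted p = 0.864). rps8b was lower, with 15.2 CPM in dusp6 mutant and 8.03 CPM in WT hearts at 3 dpa, against 21 CPM in dusp6 mutant and 24.7 CPM in WT uninjured hearts (log2 fold change -1.04 ± 0.35, adjusted p = 0.167). For the proteasome the median was 0.15, with -0.06 in the dusp6 mutant and 0.42 in the WT pair. For ribosome biogenesis it was 0.04, with -0.17 in the dusp6 mutant and 0.24 in the WT pair. The chaperones were mixed (median -0.05). The small heat shock gene hspb6 (ENSDARG00000077236, GRCz11 chromosome 15, 37559570 to 37562582) was lower, with 32.7 (dusp6 mutant) and 8.64 (WT) CPM at 3 dpa, against 252 (dusp6 mutant) and 52 (WT) CPM in uninjured hearts. For hspb6 the log2 fold change was -2.77 ± 0.24 (adjusted p = 0.0419). Its uninjured dusp6 mutant value was far above the WT one. Redox genes were also mixed (median -0.05). txn, thioredoxin, had 80.3 CPM in dusp6 mutant and 113 CPM in WT hearts at 3 dpa, against 14.7 CPM in dusp6 mutant and 7.42 CPM in WT uninjured hearts. txn differed by 3.19 ± 0.43 on the log2 scale (adjusted p = 0.0504). prdx1, a peroxiredoxin, had 9.14 (dusp6 mutant) and 27.8 (WT) CPM at 3 dpa, against 1.42 (dusp6 mutant) and 1.67 (WT) CPM in uninjured hearts. In prdx1 this gave a log2 fold change of 3.38 ± 0.43 (adjusted p = 0.0504). sod2, the mitochondrial superoxide dismutase, had 182 CPM in dusp6 mutant and 103 CPM in WT hearts at 3 dpa, against 385 CPM in dusp6 mutant and 358 CPM in WT uninjured hearts (log2 fold change -1.44 ± 0.30, adjusted p = 0.0893).

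Signalling lists had medians near 0 and held single genes with large differences. In the transforming growth factor and bone morphogenetic protein (BMP) list, 41 of 66 genes had positive values (median 0.28), with 10 higher and 1 lower by 2-fold or more in both genotypes. bmpr1ba, a BMP receptor, had 28.1 CPM in dusp6 mutant and 68 CPM in WT hearts at 3 dpa, against 3.51 CPM in dusp6 mutant and 5.11 CPM in WT uninjured hearts. For bmpr1ba the log2 fold change was 3.37 ± 0.29 (adjusted p = 0.0419). That difference is not in its exons, where reads counted over exons alone gave a log2 fold change of -0.51. id4, a gene of the family that BMP signals switch on, had 3.99 (dusp6 mutant) and 10.2 (WT) CPM at 3 dpa, against 0.427 (dusp6 mutant) and 0.81 (WT) CPM in uninjured hearts. id4 differed by 3.45 ± 0.36 on the log2 scale (adjusted p = 0.0471). tgfb2 and tgfb2l, a gene of similar name, differed in opposite directions. tgfb2l had 21.2 CPM in dusp6 mutant and 19.9 CPM in WT hearts at 3 dpa, against 5.5 CPM in dusp6 mutant and 5.44 CPM in WT uninjured hearts. In tgfb2l this gave a log2 fold change of 1.91 ± 0.23 (adjusted p = 0.0472). tgfb2 had 62.7 (dusp6 mutant) and 45.1 (WT) CPM at 3 dpa, against 95.5 (dusp6 mutant) and 111 (WT) CPM in uninjured hearts (log2 fold change -0.96 ± 0.26, adjusted p = 0.125). bmp10l, a ligand of the heart muscle, had 65.9 CPM in dusp6 mutant and 49.6 CPM in WT hearts at 3 dpa, against 128 CPM in dusp6 mutant and 135 CPM in WT uninjured hearts. For bmp10l the log2 fold change was -1.20 ± 0.24 (adjusted p = 0.081). The states did not overlap in any of these 5 genes.

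Wnt genes had a median of 0.03 over 61 genes and 8 higher and 2 lower by 2-fold or more in both genotypes, with secreted modulators among the largest differences. sfrp1a, which binds Wnt proteins, had 14.1 CPM in dusp6 mutant and 38.5 CPM in WT hearts at 3 dpa, against 1.96 CPM in dusp6 mutant and 3.67 CPM in WT uninjured hearts. sfrp1a differed by 3.12 ± 0.27 on the log2 scale (adjusted p = 0.0427). rspo3, which strengthens Wnt signals, had 13.4 (dusp6 mutant) and 25.5 (WT) CPM at 3 dpa, against 3.83 (dusp6 mutant) and 1.92 (WT) CPM in uninjured hearts. In rspo3 this gave a log2 fold change of 2.76 ± 0.54 (adjusted p = 0.0779). frzb, another Wnt-binding protein, was high in the WT library, with 23.4 CPM in dusp6 mutant and 205 CPM in WT hearts at 3 dpa, against 14.4 CPM in dusp6 mutant and 31.6 CPM in WT uninjured hearts (log2 fold change 1.70 ± 0.53, adjusted p = 0.15). Notch genes were lower in the WT pair (median -0.83) and near 0 in the dusp6 mutant pair (-0.05), with 2 higher and 1 lower by 2-fold or more in both genotypes. The receptor gene notch1b had 129 (dusp6 mutant) and 102 (WT) CPM at 3 dpa, against 191 (dusp6 mutant) and 217 (WT) CPM in uninjured hearts. For notch1b the log2 fold change was -0.83 ± 0.26 (adjusted p = 0.148). mfng, a sugar transferase that tunes Notch, had 17.4 CPM in dusp6 mutant and 32.5 CPM in WT hearts at 3 dpa, against 5.77 CPM in dusp6 mutant and 6.03 CPM in WT uninjured hearts. mfng differed by 2.01 ± 0.30 on the log2 scale (adjusted p = 0.0566). hey2, a Notch target of the ventricle, had 12.2 (dusp6 mutant) and 5.64 (WT) CPM at 3 dpa, against 24.3 (dusp6 mutant) and 27.3 (WT) CPM in uninjured hearts. In hey2 this gave a log2 fold change of -1.64 ± 0.37 (adjusted p = 0.1).

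Growth factor genes were also spread around 0 (median 0.08 over 100 genes), with 13 higher and 1 lower by 2-fold or more in both genotypes. mdka (ENSDARG00000036036, GRCz11 chromosome 7, 39166460 to 39178198), the heparin-binding growth factor midkine, was the exception in size and abundance, with 773 CPM in dusp6 mutant and 2304 CPM in WT hearts at 3 dpa, against 59 CPM in dusp6 mutant and 38 CPM in WT uninjured hearts (log2 fold change 4.82 ± 0.73, adjusted p = 0.0582). Its WT value at 3 dpa was well above that of the dusp6 mutant. pdgfab, a platelet-derived growth factor chain, had 10.9 (dusp6 mutant) and 14.6 (WT) CPM at 3 dpa, against 2.63 (dusp6 mutant) and 2.36 (WT) CPM in uninjured hearts. For pdgfab the log2 fold change was 2.34 ± 0.30 (adjusted p = 0.0504). vegfab, a ligand that guides vessel growth, was lower, with 159 (dusp6 mutant) and 121 (WT) CPM at 3 dpa, against 273 (dusp6 mutant) and 354 (WT) CPM in uninjured hearts. vegfab differed by -1.16 ± 0.31 on the log2 scale (adjusted p = 0.119). Endothelial genes had a median of -0.23, with 22 of 57 positive and 3 higher and 1 lower by 2-fold or more in both genotypes. kdrl, a receptor for that ligand, had 189 CPM in dusp6 mutant and 92.2 CPM in WT hearts at 3 dpa, against 183 CPM in dusp6 mutant and 194 CPM in WT uninjured hearts. In kdrl this gave a log2 fold change of -0.51 ± 0.34 (adjusted p = 0.424). Of the 4 libraries the WT one at 3 dpa was low. stab2, a scavenger receptor, had 10.4 (dusp6 mutant) and 22.8 (WT) CPM at 3 dpa, against 4.7 (dusp6 mutant) and 3.14 (WT) CPM in uninjured hearts (log2 fold change 2.00 ± 0.48, adjusted p = 0.107).

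Retinoid genes differed in both directions, with 9 higher and 2 lower by 2-fold or more in both genotypes among 32 tested. Besides aldh1a2, rdh10a, which oxidizes retinol, had 33.1 CPM in dusp6 mutant and 42 CPM in WT hearts at 3 dpa, against 6.27 CPM in dusp6 mutant and 10 CPM in WT uninjured hearts. For rdh10a the log2 fold change was 2.23 ± 0.23 (adjusted p = 0.0471). dhrs3a, which turns retinal back to retinol, had 16 (dusp6 mutant) and 46.2 (WT) CPM at 3 dpa, against 3.4 (dusp6 mutant) and 4.03 (WT) CPM in uninjured hearts. dhrs3a differed by 2.88 ± 0.39 on the log2 scale (adjusted p = 0.0506). rbp2a (ENSDARG00000070038, GRCz11 chromosome 15, 5803458 to 5815006), a cellular retinol-binding protein, was lower, with 11.9 CPM in dusp6 mutant and 8.35 CPM in WT hearts at 3 dpa, against 74.3 CPM in dusp6 mutant and 74.7 CPM in WT uninjured hearts. In rbp2a this gave a log2 fold change of -2.90 ± 0.25 (adjusted p = 0.0419). It was 1 of the 19 genes called lower at 0.05, with close values in the 2 genotypes. dhrs4, a retinal reductase, had 75.9 (dusp6 mutant) and 34.4 (WT) CPM at 3 dpa, against 153 (dusp6 mutant) and 117 (WT) CPM in uninjured hearts (log2 fold change -1.38 ± 0.27, adjusted p = 0.0804). Hippo pathway genes had a median of -0.06. yap1, the transcriptional effector, had 129 CPM in dusp6 mutant and 86.6 CPM in WT hearts at 3 dpa, against 108 CPM in dusp6 mutant and 99.2 CPM in WT uninjured hearts. For yap1 the log2 fold change was 0.03 ± 0.23 (adjusted p = 0.958). Of genes that answer ERK signals, spry4, an inhibitor of the pathway, had 65.3 (dusp6 mutant) and 46.2 (WT) CPM at 3 dpa, against 20.6 (dusp6 mutant) and 16.3 (WT) CPM in uninjured hearts. spry4 differed by 1.58 ± 0.21 on the log2 scale (adjusted p = 0.0504). In that list 14 of 24 genes were positive, with a median of 0.14.

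Early response genes were higher. In the AP-1 list 14 of 18 genes were positive (median 1.39), with 9 higher and 0 lower by 2-fold or more in both genotypes. In the other immediate early genes 32 of 44 were (median 0.92), with 14 higher and 3 lower by that margin. The AP-1 subunit gene fosl1a had 9.12 CPM in dusp6 mutant and 10.4 CPM in WT hearts at 3 dpa, against 1.17 CPM in dusp6 mutant and 0.331 CPM in WT uninjured hearts. In fosl1a this gave a log2 fold change of 3.88 ± 0.59 (adjusted p = 0.0582). junba, another, had 34.2 (dusp6 mutant) and 51.1 (WT) CPM at 3 dpa, against 6.32 (dusp6 mutant) and 2.93 (WT) CPM in uninjured hearts (log2 fold change 3.27 ± 0.48, adjusted p = 0.055). egr1, a zinc finger factor, had 29.6 CPM in dusp6 mutant and 36.9 CPM in WT hearts at 3 dpa, against 11.9 CPM in dusp6 mutant and 3.92 CPM in WT uninjured hearts. For egr1 the log2 fold change was 2.27 ± 0.52 (adjusted p = 0.0999). The states did not overlap in these genes, although the uninjured dusp6 mutant library was above the uninjured WT one in each. socs3a, a feedback inhibitor of cytokine signals, had 97.7 (dusp6 mutant) and 266 (WT) CPM at 3 dpa, against 59.2 (dusp6 mutant) and 4.38 (WT) CPM in uninjured hearts. socs3a differed by 3.30 ± 1.55 on the log2 scale (adjusted p = 0.275). Here too the uninjured dusp6 mutant library was far above the uninjured WT one. klf11a was lower, with 13.5 CPM in dusp6 mutant and 11.6 CPM in WT hearts at 3 dpa, against 42.6 CPM in dusp6 mutant and 53.1 CPM in WT uninjured hearts. In klf11a this gave a log2 fold change of -1.93 ± 0.24 (adjusted p = 0.0501).

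The glucocorticoid-responsive gene fkbp5 (ENSDARG00000028396, GRCz11 chromosome 6, 41096058 to 41117242), a co-chaperone of the steroid receptors, had 515 CPM in dusp6 mutant and 414 CPM in WT hearts at 3 dpa, against 13.9 CPM in dusp6 mutant and 7.99 CPM in WT uninjured hearts (log2 fold change 5.45 ± 0.32, adjusted p = 0.0419). klf9, a transcription factor switched on by the same hormone, had 33.4 (dusp6 mutant) and 22.5 (WT) CPM at 3 dpa, against 4.29 (dusp6 mutant) and 2.88 (WT) CPM in uninjured hearts. For klf9 the log2 fold change was 2.96 ± 0.23 (adjusted p = 0.0419). glulb, a glutamine synthetase, had 119.5 CPM in dusp6 mutant and 105 CPM in WT hearts at 3 dpa, against 42.2 CPM in dusp6 mutant and 13.5 CPM in WT uninjured hearts. glulb differed by 2.23 ± 0.41 on the log2 scale (adjusted p = 0.0712). All 3 were higher in both injured libraries, by similar amounts in both genotypes for fkbp5 and klf9. The list as a whole had a median of 0.38 with 21 of 34 positive and 9 higher and 3 lower by 2-fold or more in both genotypes. pdk4, a member that blocks pyruvate oxidation, was lower, with 129 (dusp6 mutant) and 66.5 (WT) CPM at 3 dpa, against 213 (dusp6 mutant) and 188 (WT) CPM in uninjured hearts. In pdk4 this gave a log2 fold change of -1.12 ± 0.29 (adjusted p = 0.116). The receptor gene nr3c1 had 127 CPM in dusp6 mutant and 85.6 CPM in WT hearts at 3 dpa, against 136 CPM in dusp6 mutant and 124 CPM in WT uninjured hearts (log2 fold change -0.32 ± 0.24, adjusted p = 0.463).

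Clock genes differed as well. Of 38 genes tested in the circadian clock list, 10 had higher and 28 lower fitted values at 3 dpa (median log2 fold change -0.39, with -0.23 in the dusp6 mutant and -0.59 in the WT pair), with 4 higher and 1 lower by 2-fold or more in both genotypes. nr1d2a, a repressor of the clock, had 180.1 CPM in dusp6 mutant and 175 CPM in WT hearts at 3 dpa, against 30.3 CPM in dusp6 mutant and 35.7 CPM in WT uninjured hearts. For nr1d2a the log2 fold change was 2.43 ± 0.23 (adjusted p = 0.0457). per1b had 7.94 (dusp6 mutant) and 8.91 (WT) CPM at 3 dpa, against 18.1 (dusp6 mutant) and 19.3 (WT) CPM in uninjured hearts. per1b differed by -1.15 ± 0.23 on the log2 scale (adjusted p = 0.0784). per3 had 14.4 CPM in dusp6 mutant and 17.6 CPM in WT hearts at 3 dpa, against 31.4 CPM in dusp6 mutant and 32.9 CPM in WT uninjured hearts. In per3 this gave a log2 fold change of -1.01 ± 0.21 (adjusted p = 0.0882). nr1d4b had 13.6 (dusp6 mutant) and 10.4 (WT) CPM at 3 dpa, against 26.5 (dusp6 mutant) and 37.5 (WT) CPM in uninjured hearts (log2 fold change -1.40 ± 0.30, adjusted p = 0.0886). In the other direction bhlhe41, a further repressor, had 9.38 CPM in dusp6 mutant and 11.2 CPM in WT hearts at 3 dpa, against 4.11 CPM in dusp6 mutant and 5.36 CPM in WT uninjured hearts. For bhlhe41 the log2 fold change was 1.13 ± 0.26 (adjusted p = 0.102). None of the 5, picked for low p in the list, overlapped between states. The hour of collection is not given in the sources used here, and its part in these values was not tested. In the 3 WT libraries of experiments 2 to 4 at 3 dpa, on a scale set over all 10 libraries, per1b lay at 60.8 to 176 CPM (median 173) and per3 at 145 to 363 CPM (median 306). On the same scale nfil3-5 lay at 8.98 to 21.1 CPM (median 12.4) and fkbp5 at 111 to 1469.6 CPM (median 1142). In experiment 1, nfil3-5 had 106 CPM in dusp6 mutant and 171 CPM in WT hearts at 3 dpa, against 145 CPM in dusp6 mutant and 176 CPM in WT uninjured hearts. For per1b, per3 and nfil3-5 all 4 libraries of experiment 1 lay outside the range of the later ones.

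**Figure D4:**
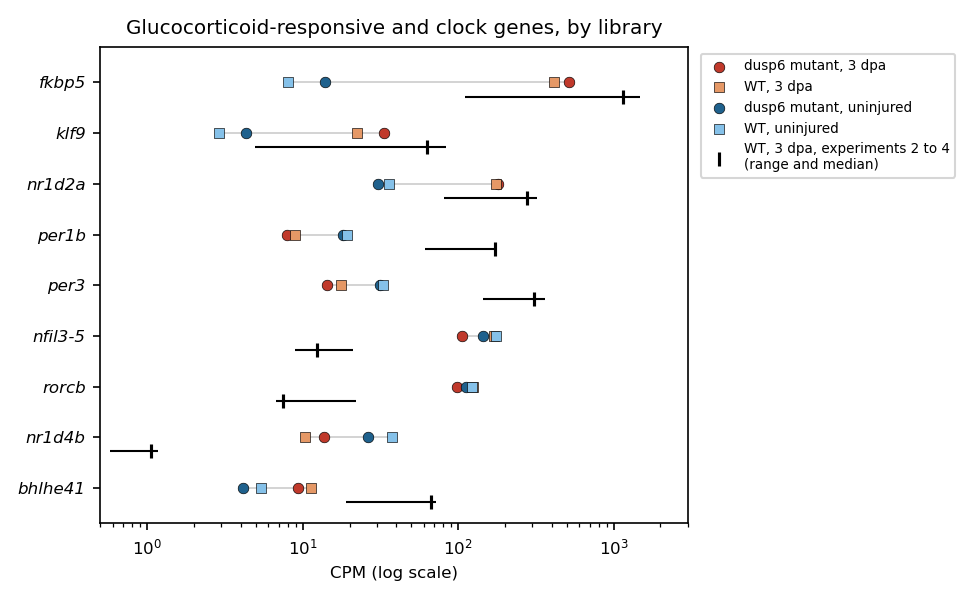
CPM on a log axis of 2 glucocorticoid-responsive genes (fkbp5, klf9) and 7 clock genes in the 4 libraries (points), with the range and median of the 3 WT libraries of experiments 2 to 4 at 3 dpa below each (black line and tick), these on a scale set over all 10 libraries. fkbp5, klf9 and nr1d2a are higher at 3 dpa, per1b, per3 and nr1d4b are lower, and the range of the later WT libraries lies apart from all 4 points for per1b, per3, nfil3-5, rorcb and nr1d4b.

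The remaining lists had medians between -0.58 and 1.03. In the lysosome list 56 of 73 genes were positive (median 0.51), with 13 higher and 0 lower by 2-fold or more in both genotypes. gpnmb, a membrane protein of phagocytes, had 2.43 CPM in dusp6 mutant and 7.73 CPM in WT hearts at 3 dpa, against 0.57 CPM in dusp6 mutant and 0.661 CPM in WT uninjured hearts. gpnmb differed by 2.84 ± 0.51 on the log2 scale (adjusted p = 0.0674). In the integrins list 20 of 28 were positive (median 0.33). itgb4, a receptor for the basement membrane, had 33.5 (dusp6 mutant) and 37 (WT) CPM at 3 dpa, against 9.01 (dusp6 mutant) and 8.63 (WT) CPM in uninjured hearts. In itgb4 this gave a log2 fold change of 2.00 ± 0.22 (adjusted p = 0.0472). The lymphocyte list had a median of 0.21, with 0.39 in the dusp6 mutant and 0.03 in the WT pair. Of its 40 genes tested 24 were positive and 16 negative, with 5 higher and 1 lower by 2-fold or more in both genotypes. Both injured libraries lay above both uninjured ones in 10 of them and below both in 7, against 28% and 27.7% of all genes. The list was thus not shifted as a whole, and its member named next was picked for low p and abundance. cxcr4b, the receptor of the chemokine cxcl12a, had 18.9 CPM in dusp6 mutant and 25.5 CPM in WT hearts at 3 dpa, against 6.84 CPM in dusp6 mutant and 3.31 CPM in WT uninjured hearts (log2 fold change 2.20 ± 0.43, adjusted p = 0.0773). In these 3 genes the states did not overlap. The Schwann cell and neuron list had a median of 0.37, and smooth muscle and mural cells one of -0.02. The hypoxia list had a median of -0.21 with 19 of 44 positive and 5 higher and 1 lower by 2-fold or more in both genotypes. Within it plod2, a lysyl hydroxylase of collagen, had 75.5 (dusp6 mutant) and 209.6 (WT) CPM at 3 dpa, against 22.9 (dusp6 mutant) and 19.9 (WT) CPM in uninjured hearts. For plod2 the log2 fold change was 2.56 ± 0.47 (adjusted p = 0.0691). ldha, a lactate dehydrogenase, had 633 CPM in dusp6 mutant and 539 CPM in WT hearts at 3 dpa, against 669 CPM in dusp6 mutant and 828 CPM in WT uninjured hearts. ldha differed by -0.35 ± 0.36 on the log2 scale (adjusted p = 0.597). The apoptosis and DNA damage list had a median of 0.25. mcl1b, which blocks apoptosis, had 104 (dusp6 mutant) and 138 (WT) CPM at 3 dpa, against 51.8 (dusp6 mutant) and 47.3 (WT) CPM in uninjured hearts. In mcl1b this gave a log2 fold change of 1.28 ± 0.24 (adjusted p = 0.0741). In the intercalated disc list 13 of 17 were negative (median -0.45). cdh2, the cadherin of cardiomyocyte junctions, had 615 CPM in dusp6 mutant and 614 CPM in WT hearts at 3 dpa, against 589.8 CPM in dusp6 mutant and 502 CPM in WT uninjured hearts (log2 fold change 0.17 ± 0.32, adjusted p = 0.782).

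The most negative log2 fold changes included genes of conjugation and glycogen storage. sult2st1, a sulfotransferase, had 25.1 CPM in dusp6 mutant and 6.45 CPM in WT hearts at 3 dpa, against 232 CPM in dusp6 mutant and 155 CPM in WT uninjured hearts. For sult2st1 the log2 fold change was -3.90 ± 0.43 (adjusted p = 0.0472). aglb, the glycogen debranching enzyme, had 38.3 (dusp6 mutant) and 20.8 (WT) CPM at 3 dpa, against 123 (dusp6 mutant) and 183 (WT) CPM in uninjured hearts. aglb differed by -2.41 ± 0.41 on the log2 scale (adjusted p = 0.0648). ppp1r3db, which brings a phosphatase to glycogen, had 5.88 CPM in dusp6 mutant and 1.16 CPM in WT hearts at 3 dpa, against 13.8 CPM in dusp6 mutant and 12 CPM in WT uninjured hearts. In ppp1r3db this gave a log2 fold change of -2.27 ± 0.59 (adjusted p = 0.116). hhatlb had 7.7 (dusp6 mutant) and 1.87 (WT) CPM at 3 dpa, against 35.4 (dusp6 mutant) and 24.6 (WT) CPM in uninjured hearts (log2 fold change -2.95 ± 0.44, adjusted p = 0.0566). grin2da, a glutamate receptor subunit, had 5.36 CPM in dusp6 mutant and 3.67 CPM in WT hearts at 3 dpa, against 21.5 CPM in dusp6 mutant and 23.8 CPM in WT uninjured hearts. For grin2da the log2 fold change was -2.35 ± 0.29 (adjusted p = 0.0472). zbtb16a, a zinc finger repressor, had 24.6 (dusp6 mutant) and 12.2 (WT) CPM at 3 dpa, against 65.5 (dusp6 mutant) and 97.9 (WT) CPM in uninjured hearts. zbtb16a differed by -2.21 ± 0.44 on the log2 scale (adjusted p = 0.0804). These 6 genes were chosen for being 2-fold or more lower in both genotypes. That both injured libraries were below both uninjured ones was thus largely set by the choice. In each the WT library at 3 dpa was the lowest.

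A list of genes of skin, liver, gut, pancreas and skeletal muscle was also examined. It shares members with other lists, pfn1 with the actin list and ckma with the muscle energy list. Its counts thus do not by themselves show tissue from outside the ventricle. Of 31 genes tested in this list, 19 had higher and 12 lower fitted values at 3 dpa (median log2 fold change 0.72), with 13 higher and 3 lower by 2-fold or more in both genotypes. mylpfa, a myosin light chain of skeletal muscle, had 7.99 CPM in dusp6 mutant and 10.6 CPM in WT hearts at 3 dpa, against 0.338 CPM in dusp6 mutant and 0.479 CPM in WT uninjured hearts. In mylpfa this gave a log2 fold change of 4.51 ± 0.35 (adjusted p = 0.0419). tnnt3b, a troponin of skeletal muscle, had 8.46 (dusp6 mutant) and 13 (WT) CPM at 3 dpa, against 1.92 (dusp6 mutant) and 1.21 (WT) CPM in uninjured hearts (log2 fold change 2.78 ± 0.43, adjusted p = 0.0584). For tnnt3b exon reads alone gave a log2 fold change of 4.07. The WT libraries of experiments 2 to 4 held mylpfa at 1.23 to 2.35 CPM (median 1.67). The most abundant skeletal muscle marker, the creatine kinase gene ckma, did not follow them, with 5041 CPM in dusp6 mutant and 2117 CPM in WT hearts at 3 dpa, against 4990.0 CPM in dusp6 mutant and 4983 CPM in WT uninjured hearts. For ckma the log2 fold change was -0.61 ± 0.80 (adjusted p = 0.688). It took nearly all of the sum of the skeletal muscle markers, 5058 (dusp6 mutant) and 2142 (WT) CPM at 3 dpa, against 4994 (dusp6 mutant) and 4988 (WT) CPM in uninjured hearts. With mylpfa at only 0.338 and 0.479 CPM in the same uninjured libraries, ckma and this sum do not tell skeletal from heart muscle. ctrb1, a digestive enzyme precursor of the pancreas, had 38.9 CPM in dusp6 mutant and 1.72 CPM in WT hearts at 3 dpa, against 95.3 CPM in dusp6 mutant and 160.4 CPM in WT uninjured hearts. ctrb1 differed by -3.86 ± 1.55 on the log2 scale (adjusted p = 0.22). Of lipoprotein genes, apobb.1 had 0.156 (dusp6 mutant) and 0.286 (WT) CPM at 3 dpa, against 22.6 (dusp6 mutant) and 1.17 (WT) CPM in uninjured hearts. apoea had 0.121 CPM in dusp6 mutant and 0.346 CPM in WT hearts at 3 dpa, against 34.3 CPM in dusp6 mutant and 0.281 CPM in WT uninjured hearts. Both are among the 19 genes called lower at 0.05, and in apoea the difference between the states was in the dusp6 mutant pair alone, while in apobb.1 both injured libraries were below both uninjured ones. Of the liver markers, fabp10a stayed at or under 0.81 CPM. tfa, transferrin, another of them, had 92.3 (dusp6 mutant) and 246 (WT) CPM at 3 dpa, against 25 (dusp6 mutant) and 19.7 (WT) CPM in uninjured hearts. In tfa this gave a log2 fold change of 2.77 ± 0.49 (adjusted p = 0.0674). The skin marker krt5 stayed under 0.84 CPM. The atrial markers myh6 and nppa summed to 2953 (dusp6 mutant) and 4864 (WT) CPM at 3 dpa. In uninjured hearts their sum was 1750 (dusp6 mutant) and 1844 (WT) CPM. The part of carried-over tissue, atrium included, in the results was not tested.

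The differences between the states were mostly larger in the WT pair, in 14783 of all 20408 genes (72.4%). Of the 5713 genes with both injured libraries above both uninjured ones, 4466 had the larger fold change in the WT pair, with a median log2 fold change of 0.70 in the dusp6 mutant pair and 1.13 in the WT pair. Of the 5643 genes in the opposite order, 4507 had the larger fold change in the WT pair, with medians of -0.41 in the dusp6 mutant and -0.76 in the WT pair. The lists had the larger median in the WT pair in 46 of 60 cases. In 8 lists the medians of the 2 pairs had opposite signs. Across the 20408 genes, which are not independent replicates, the changes of the 2 pairs, which share no library, had a Pearson correlation of 0.549 and the same sign in 72.5%. Each genotype has 1 library per state, so genotype cannot be told apart from any other difference between the pools.

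**Figure D5:**
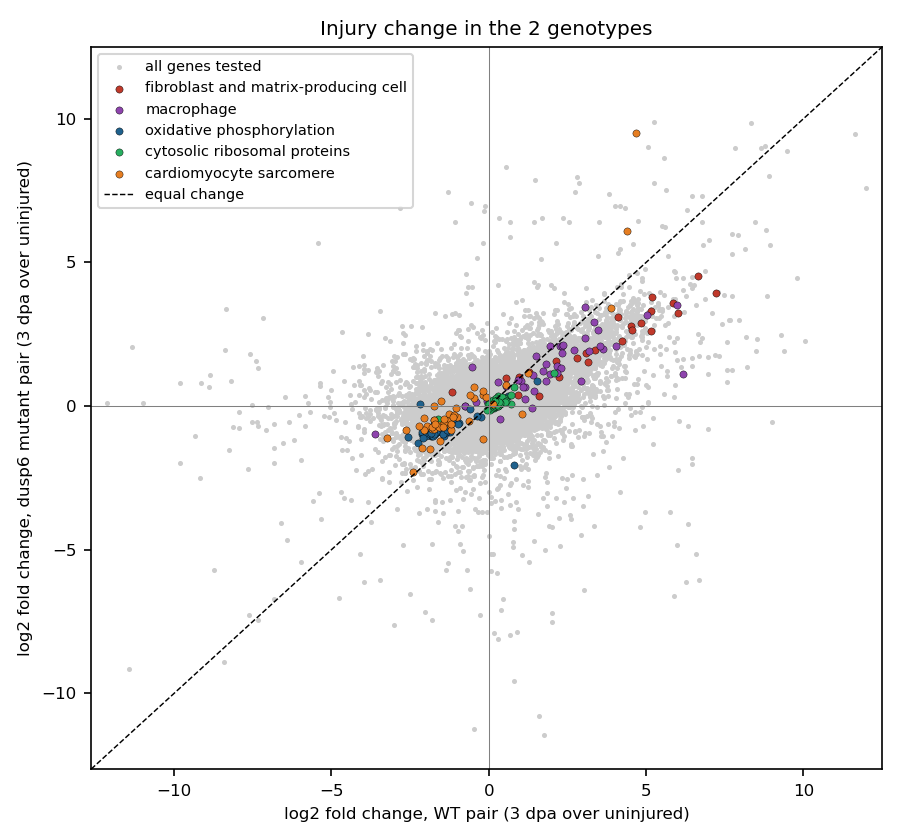
Log2 fold change (3 dpa over uninjured) of each of 20408 genes in the WT pair of libraries (horizontal) and the dusp6 mutant pair (vertical), with 5 lists in colour and a dashed line of equal change. The matrix, macrophage, oxidative phosphorylation and sarcomere genes lie mostly closer to 0 on the dusp6 mutant axis than on the WT axis, and the ribosomal protein genes lie near 0 on both.

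A test of the difference itself used a fit over all 10 libraries. Its spread came from the WT and foxm1 mutant libraries of experiments 2 to 4. The test called 123 of 19552 genes at an adjusted p of at most 0.05 (0.629%). The strongest among genes of known name was actc1a_1 (ENSDARG00000076126, GRCz11 chromosome 19, 47549568 to 47555956), named actc1c in the gene name table, with 1803 CPM in dusp6 mutant and 22.4 CPM in WT hearts at 3 dpa, against 35.6 CPM in dusp6 mutant and 962 CPM in WT uninjured hearts. The log2 fold change in dusp6 mutant hearts minus that in WT hearts was 11.09 on the log2 scale (adjusted p = 0.000273). It was abundant in the dusp6 mutant library at 3 dpa and the WT uninjured library and low in the other 2. It is a near-identical relative of other cardiac actin genes, so reads may be split between copies. The sialyltransferase gene st6galnac5b had 5.5 CPM in dusp6 mutant and 1.16 CPM in WT hearts at 3 dpa, against 3.33 CPM in dusp6 mutant and 22.5 CPM in WT uninjured hearts. This difference was 5.003 on the log2 scale (adjusted p = 0.00221), with the WT library at 3 dpa low and the uninjured WT one high. znf1179 had 32.8 (dusp6 mutant) and 1.02 (WT) CPM at 3 dpa, against 29.5 (dusp6 mutant) and 33.8 (WT) CPM in uninjured hearts. Its difference between the genotypes was 5.20 on the log2 scale (adjusted p = 0.00221). slc22a21, an organic cation transporter, had 0.121 CPM in dusp6 mutant and 23.2 CPM in WT hearts at 3 dpa, against 2.22 CPM in dusp6 mutant and 2.3 CPM in WT uninjured hearts. Here the difference was -7.49 on the log2 scale (adjusted p = 0.00221), with the dusp6 mutant library at 3 dpa low and the WT one high. itgam, an integrin of leucocytes, had 0.139 (dusp6 mutant) and 11.8 (WT) CPM at 3 dpa, against 7.89 (dusp6 mutant) and 9.89 (WT) CPM in uninjured hearts, which gave a difference of -6.05 on the log2 scale (adjusted p = 0.0188). In znf1179 and in itgam 1 injured library was near 0 and the other 3 libraries were alike, and which of the injured libraries was low differed between the 2 genes.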

How the data were processed

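Total RNA of pooled ventricles was sequenced, and the authors deposited a table per library with counts of reads per gene on the zebrafish genome GRCz11 (CLC Genomics Workbench), as totals, uniquely mapped reads and reads in exons. A per-gene p-value and fold table of the authors' own comparisons was not used. The deposited total gene reads, which include intron reads, were tested here with edgeR 4.0.16 (R 4.3.3): quasi-likelihood test, terms genotype and state, TMM scaling, filterByExpr (minimum count 10, minimum total 15), Benjamini-Hochberg adjustment over 20408 of 25281 genes. Calls needed an adjusted p of at most 0.01, or where named 0.05, and a difference of 0.59 or more on the log2 scale. Fold changes within a genotype are ratios of 2 libraries with no test, and their difference was tested in a fit over 10 libraries. Alternatives were no block, DESeq2 1.42.0, the likelihood ratio test, an earlier quasi-likelihood form, other size factors, filters and count columns, and leaving out each library. The TPM are the values the authors deposited, made from reads per exon length and scaled to a fixed total per library. Genes were named by rule: the 15 largest fold changes each way at a mean of at least 5 CPM and 2-fold in both genotypes, the 12 largest gains and losses of CPM, the 5 most abundant and the 5 of lowest p in each list, the 8 largest genotype differences each way, and dusp6. Others are said to be named after their values were seen. The genes and lists were chosen with earlier results of these data known. The fits were also run on simulated counts without genotype effects, which checked the size and sign of fold changes. That check set no limit on false calls, so it does not test the p-values. Sequencing depth was similar in all 4 libraries. The fit over these 4 holds no replicate pool of a genotype in a state. Its p-values rest on how far the difference between the states varied between the 2 genotype pairs, with 1 residual degree of freedom. They rest more on a spread shared across genes, which has the weight of 3.87 degrees of freedom. A gene that changed alike in both pairs can thus have a large SE, as hbba1_2 did. Each SE is the size of the log2 fold change divided by the square root of the F statistic. These p-values do not measure the spread between replicate pools. P-values of the fits over 10 libraries rest mostly or only on the pools of experiments 2 to 4. Some results of the lists are not reported here.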

Additional observations from a re-analysis of the deposited data

Results flagged for a closer look

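In 8 named genes the difference between the states was not the same in the 2 genotypes (edgeR quasi-likelihood test over 10 libraries, adjusted p of at most 0.05). The spread in this test came only from the WT and foxm1 mutant 3 dpa libraries of experiments 2 to 4. The values are the log2 fold change in dusp6 mutant hearts minus that in WT hearts. It was 11.09 for actc1a_1, 5.20 for znf1179 and 5.003 for st6galnac5b. It was -7.49 for slc22a21, -8.40 for apoea and -6.05 for itgam. For ckmt2a it was 2.12 and for nme2b.2 2.37, and these 2 genes were lower at 3 dpa in both genotypes, less so in the mutants. Each value rests on 1 library per genotype and state.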

How the results depend on the processing

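At an adjusted p of at most 0.01, the counts of 0 higher and 0 lower genes became 1381 and 320 with edgeR's likelihood ratio test, 1235 and 406 with DESeq2, 1575 and 587 with all 10 libraries in one fit (of its own 20049 genes), and 217 and 19 at the threshold of 0.05, while RLE size factors and uniquely mapped reads each gave 1 higher gene. At 0.05 the 217 higher and 19 lower genes became 0 and 0 without the genotype block, 53 and 3 with the earlier quasi-likelihood form, 1990 and 901 with the likelihood ratio test, 1692 and 855 with DESeq2, 635 and 56 with RLE size factors, 23 and 1 without a filter, 381 higher with uniquely mapped reads, 480 with exon reads, and 2912 and 1875 with all 10 libraries. Leaving out a library, with no block, gave 0 to 0 calls at 0.01, and at 0.05 from 0 to 2244 higher and 0 to 1343 lower, the upper values without the dusp6 mutant 3 dpa library and 0 without each of the others. The lone library is then assumed to vary like the other group.

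Of 182 genes named, 170 kept their direction in every tested alternative that gave them a value, which was all 15 for most and 13 or 14 for apoea, apobb.1, ccl27a, cxcl8a, hbaa1, hbba1_2 and mt-atp8. The others were actc1a_1 (-0.67 from exon reads, -4.45 without the dusp6 mutant 3 dpa library and -0.0765 without the dusp6 mutant uninjured one), bmpr1ba (-0.51 from exon reads), slc22a21 (-0.31 by the likelihood ratio test, -0.40 by DESeq2 and -4.20 without the WT 3 dpa library), itgam (0.43), lyz (-0.75) and nfil3-5 (0.11) without the dusp6 mutant 3 dpa library, yap1 without it (-0.24) or without the WT uninjured one (-0.0141), mpx (-0.20) without the WT uninjured one, and stat1a (0.0414), ckma (0.0108), upk3b (0.24) and znf1179 (0.0446) without the WT 3 dpa one. Most genes named were chosen by fold change, abundance or low p, and every alternative reuses the libraries of experiment 1. That most kept their direction thus follows in part from the choice. Of 60 list medians, 51 kept their direction in every alternative that gave a value, and the other 9 lay between -0.12 and 0.31. The libraries were paired by genotype. Beyond this no paired analysis was possible because all 4 libraries carry the same replicate number, that of experiment 1. The fit has 1 residual degree of freedom, and at this depth genes with 1 to 3 reads in a library gave no fold.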
